A study of Mus musculus with 18 samples.

Results

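Subcutaneous fat from the mouse groin, the inguinal white adipose tissue or iWAT, was profiled by RNA-seq of polyadenylated RNA in 3 wild-type (WT) samples and 3 samples of the genotype NFIA-Tg. These are 6 of the 18 samples of a series that also holds adipocyte cultures, and they were taken by their labelled tissue and genotype. All genes of the 6 libraries were compared between NFIA-Tg and WT. NFIA-Tg stands for mice that carry an NFIA transgene. NFIA, the product of Nfia, is a DNA-binding protein of the nuclear factor I (NFI) family. The sources used here do not name the transgene's promoter, the number of transgenic lines, or the strain, sex, age, housing temperature, diet and hour of sampling of the mice. No treatment is labelled for the tissue samples. Nothing in the labels says that the 3 replicates of a genotype came from separate animals, so p-values here speak of the scatter among these samples, and that scatter may be technical. From the title of the series, the question was how NFIA controls mitochondrial and inflammatory genes of fat cells.

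Nuclear factor I proteins bind DNA as dimers at a palindrome of the letters TTGGC and GCCAA, and more weakly at either of its arms. NFIA has been described as a regulator of the brown fat gene programme that works together with PPARγ, the master regulator of fat cell differentiation. White fat cells store triglyceride and secrete hormones. Brown and beige fat cells are rich in mitochondria and can burn fat to make heat. Fat tissue also holds vessels, nerves, macrophages and stromal progenitor cells, and in RNA from whole tissue fewer cells of a type and less RNA per cell cannot be told apart.

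The 6 libraries had similar FPKM totals and fell apart by genotype. Their FPKM values, read counts scaled for gene length and library size by the authors, summed to 444682 to 487844, and 12087 to 12344 gene symbols reached 1 FPKM in each. Symbols above 0 FPKM numbered from 14907 in WT replicate 1 to 16469 in NFIA-Tg replicate 3. The read depth is unknown, and totals of scaled values do not measure it. Across the 12396 tested genes, log2(FPKM + 1) correlated with r of 0.976 to 0.985 within a genotype and 0.945 to 0.966 between genotypes, as a description of these libraries. The first principal component, with 53.9% of the variance, set the 3 NFIA-Tg libraries apart from the 3 WT libraries. Transcripts of other tissues stood out in 2 WT libraries. Red blood cell genes summed to 26026 FPKM in WT replicate 1 and to 4322 to 9866 FPKM in the other libraries. Creatine kinase of muscle, Ckm, stood at 16.4 FPKM in WT replicate 3, at 2.26 in NFIA-Tg replicate 3 and at 0 in the other 4. Xist, the RNA that silences an X chromosome in females, lay between 0 and 0.014 FPKM, and Ddx3y of the Y chromosome between 8.82 and 14.3 FPKM, so both genotypes showed the male pattern of these genes. Markers of the mature fat cell were high in all 6, among them Fabp4 (19268 to 21161 FPKM in WT, 18539.7 to 28583 in NFIA-Tg) and Adipoq, and keratins and milk proteins of the mammary gland were nearly absent, with 9 of 14 such genes at 0 in every library.

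Nfia checked the labels. Its level was 3.73, 4.19 and 3.94 FPKM in WT against 166, 99.6 and 157 FPKM in NFIA-Tg, with no overlap between the groups (log2 difference 4.8 ± 0.18, adjusted p = 3.77e-05; here and below a log2 difference is NFIA-Tg minus WT on log2(FPKM + 1) with its standard error, from limma with Benjamini-Hochberg adjustment over all tested genes). Reads of the transgene and of the mouse's own gene cannot be told apart in these values. Its relatives were not called. Nfib had 8.8, 9.76 and 8.9 FPKM in WT against 10.8, 11.4 and 9.81 FPKM in NFIA-Tg (log2 difference 0.2 ± 0.11, adjusted p = 0.27). Nfic had 29.6, 35.3 and 39.5 FPKM in WT against 33.5, 34.2 and 23.6 FPKM in NFIA-Tg (log2 difference -0.2 ± 0.17, adjusted p = 0.474). Nfix had 27.4, 35.1 and 35.5 FPKM in WT against 50.04, 39.9 and 25.1 FPKM in NFIA-Tg (log2 difference 0.18 ± 0.23, adjusted p = 0.642). The 3 Nfib values of NFIA-Tg all lay above those of WT, while both other genes overlapped between the genotypes.

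Of the 12396 tested genes, 1413 (11.4%) differed between the genotypes at an adjusted p under 0.05, and these are the genes called here. 739 (5.96%) were higher and 674 (5.44%) lower in NFIA-Tg, and in each of the 1413 the values of the 2 genotypes did not overlap. Groups that did not overlap were more frequent than calls, with NFIA-Tg above WT in 20.5% and below WT in 13.9% of tested genes. The balance of directions turned with the scaling, to 602 higher and 810 lower with median-of-ratios scaling and to 665 higher and 819 lower with quantile normalization, while the median over all tested genes moved from 0.05 to 0.01 and 0.03. Calls depended on single libraries. Without WT replicate 1, 2 or 3 the calls numbered 1023, 814 and 617, and without NFIA-Tg replicate 1, 2 or 3 they numbered 1262, 638 and 745. 463 genes (3.74%) were called with all 6 libraries and again whichever library was left out, 224 of them (1.81%) higher and 239 (1.93%) lower. These are referred to below as the genes called in all 7 fits, and for the main genes that lost their call the libraries whose omission ended it are named. For further called genes the log2 difference is followed by the number of the 6 fits without 1 library that kept the call, for example 3 of 6. A mean is given ± SD over 3 libraries.

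**Figure D1:**
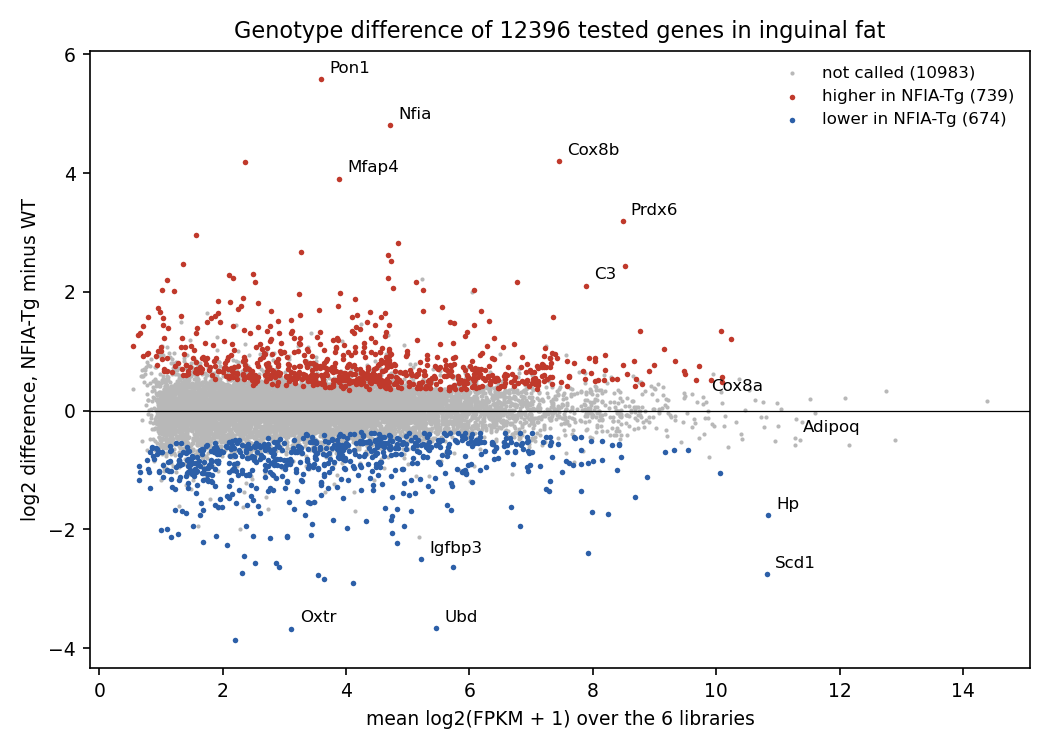
Log2 difference (NFIA-Tg minus WT) of each tested gene against its mean log2(FPKM + 1) over the 6 libraries, with called genes in red (739 higher) and blue (674 lower). Nfia, Pon1, Cox8b, Mfap4 and Prdx6 stand at the upper edge and Oxtr, Ubd and Scd1 at the lower edge, while Adipoq lies at -0.46 without a call.

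Among genes called in all 7 fits, with at least 5 FPKM in the higher group, the 12 largest increases were Pon1, Nfia, Cox8b, Mfap4, Prdx6, Vat1l, P2rx5, Tst, Pla2g2e, Cyp2e1, Il17rb and Gfra1. Genes that passed the filter on low values only through their higher group cannot enter this list. Without a library of that group they were not tested. Angptl7, described below, is such a gene, and its log2 difference of 4.19 was larger than that of Mfap4. Pon1, a secreted lipoprotein-bound esterase made mainly in the liver, had 0, 1.92 and 0.834 FPKM in WT against 59, 81.2 and 119.6 FPKM in NFIA-Tg (log2 difference 5.59 ± 0.38, adjusted p = 0.000325), so it was listed at 0 in WT replicate 1 and stood at 59 FPKM or more in every transgenic library. Cox8b, the heart and muscle form of the smallest cytochrome c oxidase subunit and a standard marker of brown fat, had 19.9, 67.1 and 46.2 FPKM in WT against 699.9, 633 and 941 FPKM in NFIA-Tg (log2 difference 4.2 ± 0.38, adjusted p = 0.000884). No WT library came near the lowest NFIA-Tg library. Because Cox8b is also a muscle gene, markers of skeletal muscle were read beside it. The 18 markers summed to 237.5, 178.9 and 288.9 FPKM in WT and to 101.6, 106.3 and 138.3 FPKM in NFIA-Tg. Acta1, described below, made up most of the sum in WT replicates 1 and 2 and a smaller part in every NFIA-Tg library. The gap between the sums thus rests largely on Acta1 and does not show that muscle RNA as a whole was lower. Ckm was at 0 in 2 of the 3 NFIA-Tg libraries and at 2.26 FPKM in the third. Of the 8 markers that could be tested, Acta1 fell and Myl1, a light chain of fast muscle myosin, rose from 40.6 ± 8.21 to 70.3 ± 10.8 FPKM (log2 difference 0.79 ± 0.17, adjusted p = 0.0232), a call lost without WT replicate 1 or 2 or without NFIA-Tg replicate 2 or 3 (adjusted p 0.0519 to 0.0812). The part of muscle RNA in the Cox8b values was not tested further.

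Prdx6, a peroxiredoxin that reduces phospholipid peroxides, had 127, 109 and 116 FPKM in WT against 1080.3, 928 and 1247 FPKM in NFIA-Tg (log2 difference 3.19 ± 0.14, adjusted p = 4.39e-05), again with a wide gap between the genotypes. Mfap4, a microfibril-associated matrix protein, had 2.57, 2.35 and 3.6 FPKM in WT against 80.8, 41.5 and 52.6 FPKM in NFIA-Tg (log2 difference 3.91 ± 0.23, adjusted p = 0.000202). The other genes of the group code for proteins of several kinds. Tst, a mitochondrial sulfurtransferase that detoxifies sulfide and cyanide, rose from 9.46 ± 1.83 to 63 ± 9.53 FPKM (log2 difference 2.62 ± 0.17, adjusted p = 0.000235). P2rx5, an ATP-gated channel used as a surface marker of brown fat cells, rose from 2.91 ± 0.97 to 23.5 ± 4.07 FPKM (log2 difference 2.67 ± 0.2, adjusted p = 0.000448). Cyp2e1, a cytochrome P450 that oxidizes ethanol and acetone, rose from 170.3 ± 78.2 to 891 ± 335 FPKM (log2 difference 2.44 ± 0.38, adjusted p = 0.00646). Among secreted and surface proteins, the phospholipase Pla2g2e rose from 10.2 ± 1.88 to 66.2 ± 29.96 FPKM (2.52 on the log2 scale), the interleukin-25 receptor chain Il17rb from 1.62 ± 0.791 to 11.8 ± 3.44 FPKM (2.31) and Gfra1, the receptor of the nerve growth factor GDNF, from 0.956 ± 0.352 to 8.47 ± 0.666 FPKM (2.29). Vat1l rose from 10.6 ± 4.96 to 77.2 ± 20.3 FPKM (2.82).

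By the same limits, the 12 largest decreases were Oxtr, Ubd, Lctl, Mtarc1, Fgf13, Scd1, Gnal, Acta1, Abat, Kcnh2, Dusp9 and Igfbp3. Itgad, described below, fell by more than Oxtr but was left out because it passed the filter only through WT. Oxtr, the oxytocin receptor, had 36.8, 18.6 and 38.8 FPKM in WT against 1.29, 2.1 and 1.01 FPKM in NFIA-Tg (log2 difference -3.67 ± 0.28, adjusted p = 0.000483). Ubd, the ubiquitin-like modifier FAT10 that interferon-γ and TNF induce, had 120.1, 147 and 211 FPKM in WT against 11.8, 8.31 and 14.6 FPKM in NFIA-Tg (log2 difference -3.67 ± 0.24, adjusted p = 0.000274). Scd1, the desaturase that makes oleate from stearate, had 5559, 4969.6 and 3676 FPKM in WT against 812, 883 and 468 FPKM in NFIA-Tg (log2 difference -2.75 ± 0.27, adjusted p = 0.00114). Its highest NFIA-Tg value lay far below its lowest WT value. Igfbp3, a carrier of insulin-like growth factors, had 116, 69.7 and 80.5 FPKM in WT against 13.7, 12.9 and 17.5 FPKM in NFIA-Tg (log2 difference -2.49 ± 0.19, adjusted p = 0.000483).

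Several of the other decreases were of signalling and channel proteins. Fgf13, an intracellular partner of sodium channels, fell from 29.4 ± 2.89 to 3.51 ± 0.765 FPKM (-2.76 on the log2 scale), Gnal, an α subunit of a stimulatory G protein, from 12.5 ± 5.21 to 0.951 ± 0.382 FPKM (-2.74), and the potassium channel Kcnh2 from 13 ± 1.28 to 1.47 ± 0.88 FPKM (-2.57). The MAP kinase phosphatase Dusp9 fell from 17.3 ± 5.65 to 2.16 ± 1.32 FPKM (-2.57). Abat, which breaks down the transmitter GABA in mitochondria, fell from 18.8 ± 8.31 to 2.03 ± 0.304 FPKM (-2.63), Mtarc1, a mitochondrial amidoxime reductase, from 33 ± 8.87 to 3.8 ± 1.4 FPKM (-2.83), and the lactase-like protein Lctl from 47.4 ± 10.5 to 5.59 ± 2.15 FPKM (-2.91). Acta1, the actin of skeletal muscle, had 182, 121 and 102 FPKM in WT against 21.6, 11.4 and 33.2 FPKM in NFIA-Tg (log2 difference -2.64 ± 0.35, adjusted p = 0.00386). Its level did not follow the muscle transcripts of WT replicate 3: Ckm and Myh4 were highest in that library, at 16.4 and 12 FPKM, whereas Acta1 was lowest there among the WT libraries.

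**Figure D2:**
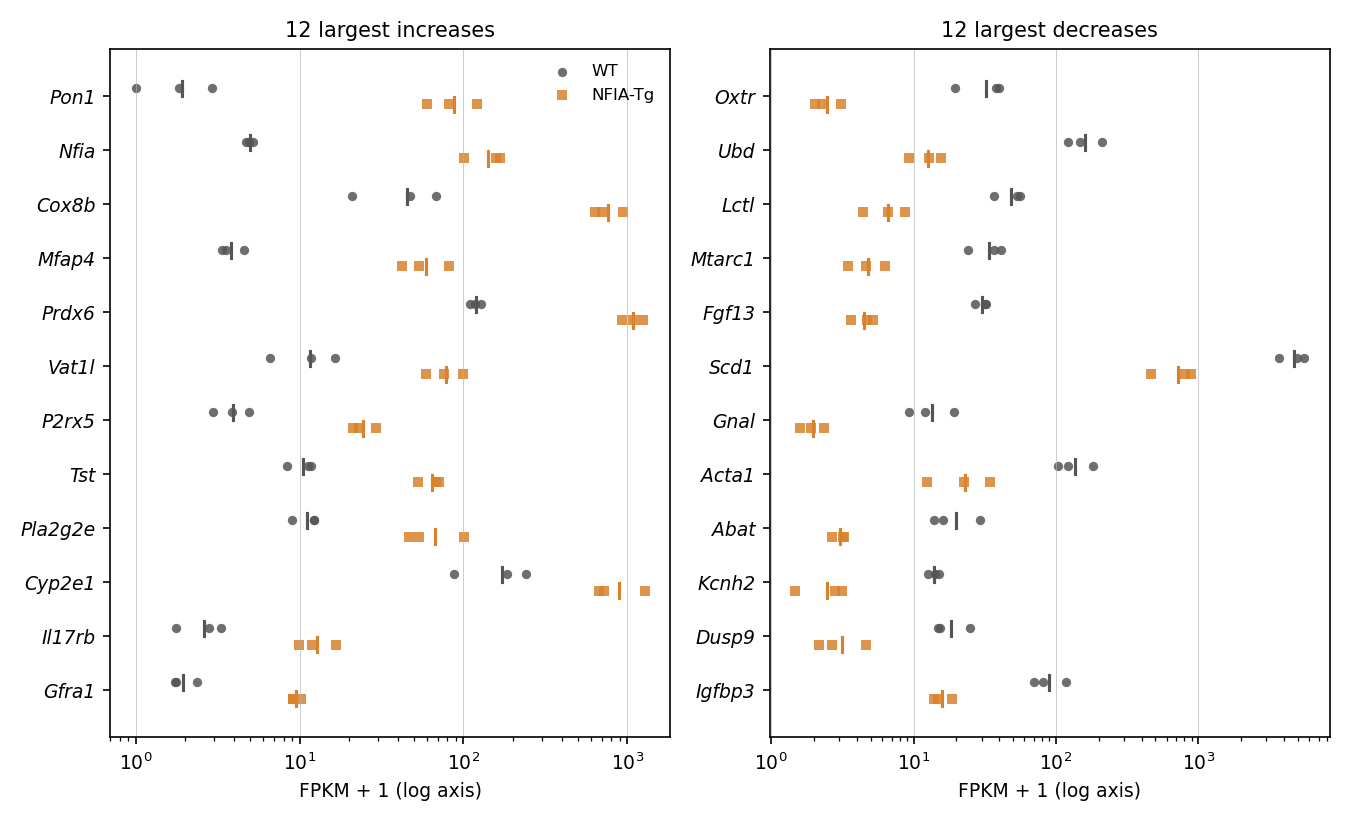
FPKM + 1 on a log axis in each library for the 12 largest increases (left) and the 12 largest decreases (right) among genes called in all 7 fits, with WT as grey circles, NFIA-Tg as orange squares and group means as bars. By the rule of selection, the 3 values of 1 genotype lie wholly to the right of the 3 of the other for each gene.

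The promoters of the 2 largest increases other than Nfia are shown because NFI proteins bind a short motif in DNA. The stretches run from 250 bases before the start of the gene up to the start, 5′ to 3′ on the strand of the gene, from RefSeq on GRCm38.p6, with the motif TTGGC or its reverse complement GCCAA in capitals. The Cox8b stretch (chr7:140900447-140900696, minus strand) has 1 such motif, 40 bases before the start, and the Pon1 stretch (chr6:5193947-5194196, minus strand) has 1, at 212 bases.
Cox8b: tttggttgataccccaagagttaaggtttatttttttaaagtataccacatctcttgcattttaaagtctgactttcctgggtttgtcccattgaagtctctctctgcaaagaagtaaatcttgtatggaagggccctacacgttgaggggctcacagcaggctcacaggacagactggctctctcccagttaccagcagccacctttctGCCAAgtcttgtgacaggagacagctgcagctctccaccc
Pon1: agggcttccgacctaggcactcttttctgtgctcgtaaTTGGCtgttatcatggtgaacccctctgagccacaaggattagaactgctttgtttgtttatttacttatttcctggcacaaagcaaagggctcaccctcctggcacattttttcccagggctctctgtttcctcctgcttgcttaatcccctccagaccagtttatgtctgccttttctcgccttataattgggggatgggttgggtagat
In windows of 250 bases before to 50 bases after the start, known for 9724 of the 12396 tested genes, either strand held TTGGC in 49.8% of 12398 windows, in 51.6% of those of genes called higher and in 51% of those of genes called lower. The full palindrome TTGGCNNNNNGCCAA occurred in 5 windows (0.0403%), none of them of a called gene. A match is a description of the letters and shows no binding.

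Many genes of the mitochondrial respiratory chain rose, mostly by small amounts. The chain passes electrons from nutrients to oxygen in complexes I to IV, and complex V makes ATP. Called members, all higher, numbered 13 of 37 in complex I, 3 of 4 in complex II, 5 of 9 in complex III and 4 of 16 in complex V. In complex IV, 6 of 16 were higher and 1 was lower. The median log2 difference was 0.32 in complex I, 0.52 in II, 0.42 in III, 0.32 in IV and 0.32 in V, beside 0.05 over all tested genes. Most of these calls rested on all 6 libraries being present. For complex I the called members numbered 12, 3 and 1 without WT replicate 1, 2 or 3 and 13, 0 and 3 without NFIA-Tg replicate 1, 2 or 3. With median-of-ratios scaling, 8 members of complex I and 3 of complex III were called higher.

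Only Sdhb in complex II, Cox7a1, Cox8b and Cox4i2 in complex IV and Atp5c1 in complex V were called in all 7 fits. Sdhb, the iron-sulfur subunit of succinate dehydrogenase, had 110.4, 119 and 101 FPKM in WT against 168, 199 and 202 FPKM in NFIA-Tg (log2 difference 0.78 ± 0.12, adjusted p = 0.00548). Atp5c1, the central stalk of ATP synthase, had 181, 208 and 186 FPKM in WT against 309, 381 and 373 FPKM in NFIA-Tg (log2 difference 0.88 ± 0.12, adjusted p = 0.00423). Like every called increase, both were higher in every NFIA-Tg library than in any WT library. In complex I the core subunit Ndufs1 rose from 38.3 ± 4.74 to 66.6 ± 10.6 FPKM (log2 difference 0.78 ± 0.15, adjusted p = 0.0143) and lost the call without NFIA-Tg replicate 2 (adjusted p = 0.0565). Further called subunits of complex I were Ndufa6 (0.36, 1 of 6), Ndufa9 (0.47, 2 of 6), Ndufa10 (0.48, 3 of 6), Ndufa12 (0.46, 1 of 6), Ndufb6 (0.41, 2 of 6), Ndufb10 (0.58, 2 of 6), Ndufs3 (0.45, 2 of 6), Ndufs4 (0.58, 1 of 6), Ndufs7 (0.48, 3 of 6), Ndufv1 (0.48, 1 of 6) and Ndufv2 (0.48, 2 of 6). In complex V, the catalytic core subunits Atp5a1 (0.53, 2 of 6) and Atp5b (0.56, 2 of 6) and the rotor subunit Atp5g3 (0.46, 1 of 6) rose as well. In complex III Uqcrh rose from 231 ± 12.5 to 375 ± 52.1 FPKM (log2 difference 0.69 ± 0.13, adjusted p = 0.0129), a call lost without WT replicate 2 or 3 (adjusted p 0.05 to 0.0546). The core protein Uqcrc2 rose from 87.9 ± 11.6 to 148 ± 20.2 FPKM (log2 difference 0.74 ± 0.14, adjusted p = 0.0142), lost without WT replicate 3 or without NFIA-Tg replicate 2 (adjusted p 0.0562 to 0.0569). Called too were Cyc1, Uqcrb and Uqcrc1 of complex III and Sdha and Sdhc of complex II, with log2 differences of 0.57, 0.56, 0.42, 0.58 and 0.47. Sdhd (0.4), Uqcrfs1 (0.38), Uqcrq (0.32), Uqcr10 (0.1) and Uqcr11 (0.21) were not called.

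Cytochrome c oxidase showed the widest spread. Cox7a1, the muscle and brown fat form of subunit VIIa, had 14.2, 12 and 13.2 FPKM in WT against 35, 40.02 and 56 FPKM in NFIA-Tg (log2 difference 1.64 ± 0.17, adjusted p = 0.00147). Its ubiquitous counterpart Cox7a2 had 182, 138 and 147 FPKM in WT against 158, 159 and 183 FPKM in NFIA-Tg (log2 difference 0.11 ± 0.13, adjusted p = 0.619). Cox8a, the ubiquitous counterpart of Cox8b, had 903, 769 and 774 FPKM in WT against 998, 971 and 889 FPKM in NFIA-Tg (log2 difference 0.23 ± 0.13, adjusted p = 0.281). Neither ubiquitous form was called, and in both the genotypes overlapped. The subunits Cox6c, Cox7b, Cox5a and Cox5b rose by 0.53, 0.52, 0.51 and 0.42 on the log2 scale. Cox4i2, a form of subunit IV described in lung and in hypoxia, fell, with 7.65, 9.67 and 8.24 FPKM in WT against 3.81, 3.72 and 2.68 FPKM in NFIA-Tg (log2 difference -1.12 ± 0.15, adjusted p = 0.00415), while the common form Cox4i1 was not called (0.3 ± 0.12). The muscle form Cox6a2 stood at 4.11 FPKM in WT replicate 3, the library with muscle transcripts, and at 0 to 1.52 FPKM elsewhere, and was not called (log2 difference -1.17 ± 0.34, adjusted p = 0.0649).

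**Figure D3:**
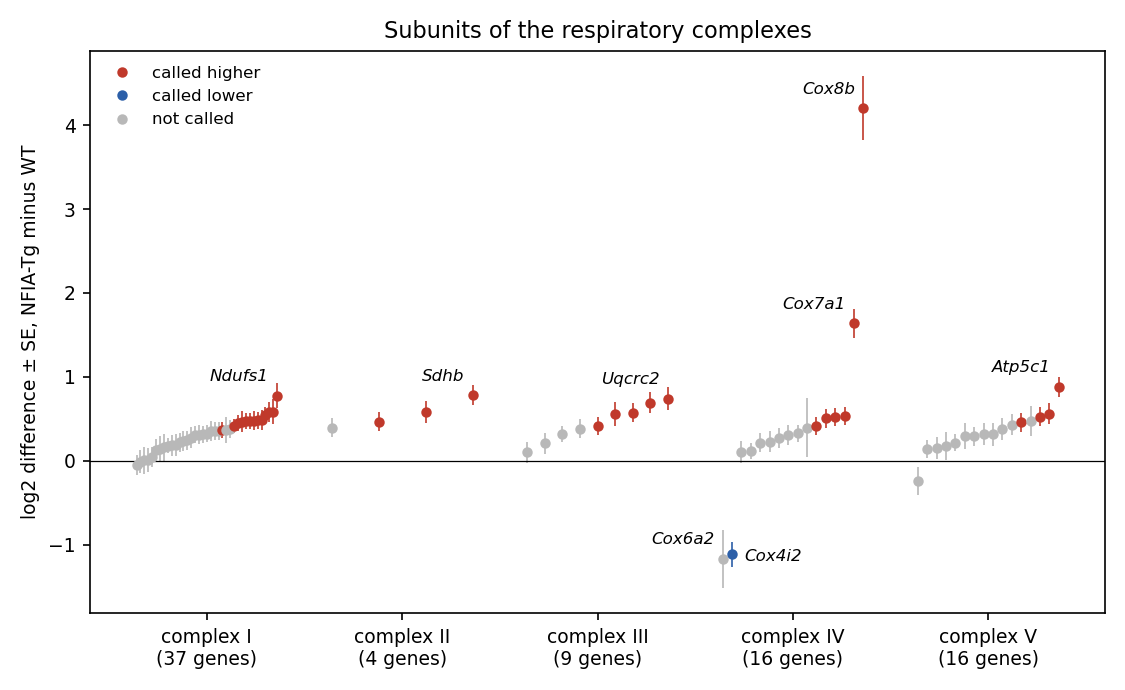
Log2 difference ± SE of each tested subunit, NFIA-Tg minus WT, in order of size within each respiratory complex, with called subunits in red (higher) or blue (lower). Cox8b and Cox7a1 stand apart above the other subunits, and Cox4i2 is the only called decrease.

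Regulators of mitochondrial biogenesis were called higher in 4 of 18 cases and lower in none. Ppargc1a, the coactivator PGC-1α, had 0.556, 0.756 and 0.458 FPKM in WT against 2.89, 1.97 and 1.16 FPKM in NFIA-Tg (log2 difference 0.88 ± 0.23, adjusted p = 0.0424), a call lost without WT replicate 1, 2 or 3 (adjusted p 0.0714 to 0.124). Without a library of NFIA-Tg it fell below the filter on low values and was not tested. It passed that filter only through NFIA-Tg, so within the count of 4 its direction was fixed. Its partner Esrra, a nuclear receptor for respiratory genes, rose from 17.3 ± 0.616 to 25.5 ± 3.37 FPKM (log2 difference 0.53 ± 0.12, adjusted p = 0.025) and lost the call without WT replicate 1, 2 or 3 or without NFIA-Tg replicate 2 (adjusted p 0.0539 to 0.0863). Ppara, the fatty acid receptor, and Polg2, a subunit of the mitochondrial DNA polymerase, were called with log2 differences of 0.85 and 0.73, the first lost without WT replicate 1 or 3 or without NFIA-Tg replicate 1, 2 or 3 (adjusted p 0.0586 to 0.121) and the second without WT replicate 3 or without NFIA-Tg replicate 2 or 3 (adjusted p 0.0625 to 0.0781). Of 34 genes for protein import and the shape of mitochondria, 5 rose (14.7%, beside 5.96% of all tested genes). They were the fusion protein Mfn2 (0.39, 1 of 6), the prohibitin Phb2 (0.46, 3 of 6), the chaperones Hspd1 (0.55, 1 of 6) and Hspa9 (0.47, 1 of 6) and the membrane protein Letmd1 (0.52, 2 of 6). None of the 34 was called without WT replicate 2 or 3 or without NFIA-Tg replicate 2. Mitochondrial ribosomal proteins had 9 of 76 called higher, beside 5.96% of all tested genes, and a median of 0.12, and 5 with median-of-ratios scaling and 2 with no filter on low values. The ribosomal gene that kept its call most often was Mrpl47 (0.8, 4 of 6). None of the 18, 34 and 76 genes of these lists was called in all 7 fits.

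Enzymes that feed the respiratory chain were called higher in several pathways. Among genes of pyruvate entry and the citric acid cycle, 15 of 30 were higher and none lower (median 0.49), and the called members numbered 12, 12 and 6 without WT replicate 1, 2 or 3 and 17, 6 and 9 without NFIA-Tg replicate 1, 2 or 3. Pdha1, the catalytic subunit of pyruvate dehydrogenase, had 76.8, 91.4 and 81.5 FPKM in WT against 143, 163 and 165 FPKM in NFIA-Tg (log2 difference 0.91 ± 0.11, adjusted p = 0.00275). Suclg2, of succinyl-CoA synthetase, had 15.3, 18.3 and 16.4 FPKM in WT against 28.1, 29 and 30.2 FPKM in NFIA-Tg (log2 difference 0.77 ± 0.1, adjusted p = 0.00395). Idh3b, of isocitrate dehydrogenase, rose from 112 ± 10.5 to 187 ± 19.6 FPKM (log2 difference 0.73 ± 0.12, adjusted p = 0.00845). Pdk2, a kinase that switches pyruvate dehydrogenase off, rose from 51.8 ± 2.58 to 104 ± 24.7 FPKM (log2 difference 0.97 ± 0.16, adjusted p = 0.00828). These 4 genes were called in all 7 fits. Citrate synthase, Cs, rose from 157 ± 27.7 to 272 ± 31.3 FPKM (log2 difference 0.8 ± 0.15, adjusted p = 0.0153) and lost the call without NFIA-Tg replicate 2 (adjusted p = 0.0583). Mdh2 rose from 262 ± 18.9 to 383 ± 47.6 FPKM (log2 difference 0.54 ± 0.13, adjusted p = 0.031) and lost the call without WT replicate 1, 2 or 3 or without NFIA-Tg replicate 2 or 3 (adjusted p 0.0638 to 0.0935). Also called were the pyruvate carrier Mpc1 (0.72, 5 of 6), the dehydrogenase subunits Pdhb (0.62, 1 of 6), Dld (0.68, 2 of 6), Idh3g (0.57, 5 of 6), Ogdh (0.39, 1 of 6) and Dlst (0.6, 3 of 6), Suclg1 (0.62, 4 of 6) and fumarase Fh1 (0.59, 4 of 6).

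Mitochondrial fatty acid oxidation had 10 of 24 members higher and none lower (median 0.53), and the called members numbered 8, 8 and 4 without WT replicate 1, 2 or 3 and 9, 3 and 5 without NFIA-Tg replicate 1, 2 or 3. With no filter on low values 5 were called higher. The 3 called in all 7 fits belong to the oxidation spiral itself. Eci1, an enoyl-CoA isomerase, had 111, 125 and 114 FPKM in WT against 194, 192 and 197 FPKM in NFIA-Tg (log2 difference 0.73 ± 0.09, adjusted p = 0.00354). Echs1, the enoyl-CoA hydratase, had 136, 162 and 134 FPKM in WT against 236, 256 and 275 FPKM in NFIA-Tg (log2 difference 0.83 ± 0.12, adjusted p = 0.00444). Acadl, the long-chain acyl-CoA dehydrogenase, had 151, 206 and 189 FPKM in WT against 293, 347 and 365 FPKM in NFIA-Tg (log2 difference 0.88 ± 0.15, adjusted p = 0.00876). Cpt2, which completes the entry of fatty acids into mitochondria, rose from 60.6 ± 10.2 to 112 ± 18.6 FPKM (log2 difference 0.88 ± 0.16, adjusted p = 0.0132), a call lost without NFIA-Tg replicate 2 (adjusted p = 0.0505). The other called members were the very long chain dehydrogenase Acadvl (0.66, 3 of 6), the later spiral enzymes Hadh (0.52, 1 of 6) and Acaa2 (0.6, 2 of 6), the electron carriers Etfa (0.53, 2 of 6) and Etfdh (0.62, 2 of 6) and the thioesterase Acot2 (0.57, 2 of 6). Acsl1, which activates fatty acids, overlapped between the genotypes (log2 difference 0.45 ± 0.25, adjusted p = 0.274). In peroxisomes, which shorten very long and branched fatty acids, 5 of 31 genes were higher and none lower. Increases thus made up 16.1% of the list, beside 5.96% of all tested genes. Phyh, which starts the breakdown of phytanic acid, had 111, 136 and 102 FPKM in WT against 209, 218 and 215 FPKM in NFIA-Tg (log2 difference 0.88 ± 0.12, adjusted p = 0.00444). Ech1, an isomerase of the pathway, rose from 579 ± 25.5 to 891 ± 75.2 FPKM (log2 difference 0.62 ± 0.12, adjusted p = 0.0163) and lost the call without WT replicate 3 or without NFIA-Tg replicate 2 (adjusted p 0.0505 to 0.0714). The carnitine acetyltransferase Crat (0.56, 3 of 6) and the peroxins Pex6 (0.44, 0 of 6) and Pex14 (0.5, 2 of 6) were called too.

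Breakdown of the branched-chain amino acids leucine, isoleucine and valine had 12 of 24 members higher and none lower (median 0.37), and the called members numbered 10, 7 and 4 without WT replicate 1, 2 or 3 and 11, 5 and 6 without NFIA-Tg replicate 1, 2 or 3. Ivd, the isovaleryl-CoA dehydrogenase of leucine breakdown, had 61.3, 72.9 and 56.3 FPKM in WT against 133, 121 and 152 FPKM in NFIA-Tg (log2 difference 1.08 ± 0.13, adjusted p = 0.00276). Acadsb, its isoleucine counterpart, had 35.8, 39.8 and 35.8 FPKM in WT against 58.7, 59.6 and 64.9 FPKM in NFIA-Tg (log2 difference 0.7 ± 0.1, adjusted p = 0.00423). Both subunits of propionyl-CoA carboxylase were called in all 7 fits as well, Pcca from 37 ± 3.89 to 63.6 ± 7.41 FPKM (log2 difference 0.76 ± 0.12, adjusted p = 0.00791). Pccb rose from 95.2 ± 9.66 to 149.7 ± 1.74 FPKM (log2 difference 0.65 ± 0.1, adjusted p = 0.0069). Bckdha, a subunit of the committed step, rose from 151 ± 7.77 to 211 ± 11.6 FPKM (log2 difference 0.48 ± 0.1, adjusted p = 0.0206), a call lost without WT replicate 2 or 3 or without NFIA-Tg replicate 2 or 3 (adjusted p 0.0504 to 0.0912). The other called members were Dbt (0.49, 2 of 6), Bckdk (0.48, 5 of 6), Mccc1 (0.69, 3 of 6), Auh (0.39, 0 of 6), Acad8 (0.52, 1 of 6), Hibadh (0.41, 1 of 6) and the thiolase Acat1, Bckdk being the kinase that switches the committed step off. In ketone body metabolism, 2 of 8 genes were higher. Aacs, which activates acetoacetate, rose (log2 difference 0.94 ± 0.22, adjusted p = 0.0303) and lost the call without WT replicate 1, 2 or 3 or without NFIA-Tg replicate 2 or 3 (adjusted p 0.0512 to 0.0895). Acat1 rose (log2 difference 0.59 ± 0.11, adjusted p = 0.0125) and lost the call without WT replicate 3 or without NFIA-Tg replicate 2 (adjusted p 0.0554 to 0.0556). Bdh2 (0.3), Oxct1 (0.13), Slc16a1 (0.51) and Slc16a7 (-0.06) were not called.

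Thermogenic genes, those that mark brown and beige fat, had 13 of 28 tested members higher and 1 lower, with a median of 0.8. Several of them are counted above under their own function. Their called members numbered 9, 11 and 8 without WT replicate 1, 2 or 3 and 11, 7 and 9 without NFIA-Tg replicate 1, 2 or 3. With no filter on low values 8 were called higher. Ucp1, the uncoupling protein that makes heat, had 1.11, 1.87 and 0.767 FPKM in WT against 1.25, 4.08 and 1.33 FPKM in NFIA-Tg and was not called (log2 difference 0.44 ± 0.33, adjusted p = 0.418). Its highest WT value lay above 2 of the 3 NFIA-Tg values. Cidea, a lipid droplet protein of brown fat, had 4.3, 25.7 and 10.6 FPKM in WT against 49.8, 60.5 and 54 FPKM in NFIA-Tg (log2 difference 2.24 ± 0.48, adjusted p = 0.0232), a call lost without WT replicate 3 or without NFIA-Tg replicate 2 or 3 (adjusted p 0.0658 to 0.0723). The genes of this list called in all 7 fits were Cox8b, Cox7a1, P2rx5, Nrg4, Ebf2 and Kcnk3. Nrg4, a secreted neuregulin of brown fat, had 29.97, 33.1 and 27.1 FPKM in WT against 62.8, 67.6 and 69.5 FPKM in NFIA-Tg (log2 difference 1.13 ± 0.11, adjusted p = 0.00102). Ebf2, a transcription factor of brown fat precursors, had 2.85, 3.03 and 3.42 FPKM in WT against 8.14, 8.33 and 7.42 FPKM in NFIA-Tg (log2 difference 1.13 ± 0.12, adjusted p = 0.00166). Kcnk3, a potassium channel of brown fat, was the 1 that fell, with 17.9, 17.8 and 23.4 FPKM in WT against 9.48, 7.51 and 5.42 FPKM in NFIA-Tg (log2 difference -1.31 ± 0.19, adjusted p = 0.00532). Further called members were the fatty acid carrier Fabp3 (1.56, 4 of 6), the droplet coat protein Plin5 (0.74, 2 of 6), Clstn3 (1.05, 2 of 6) and Mpzl2 (1.45, 3 of 6). Prdm16, a regulator of the beige fate, overlapped between genotypes (log2 difference 0.23 ± 0.16, adjusted p = 0.384), and so did Adrb3, the β3-adrenergic receptor (log2 difference -0.27 ± 0.24, adjusted p = 0.504). Dio2, which activates thyroid hormone, lay at 0 to 0.112 FPKM in WT and 0.21 to 0.36 in NFIA-Tg, below the level needed for a test.

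Heat can also be made by futile cycles of creatine and of calcium. Of 11 tested genes of these cycles, 2 were higher and 1 lower. Slc6a8, the creatine transporter, had 11.4, 8.91 and 10.2 FPKM in WT against 38, 18.4 and 26.8 FPKM in NFIA-Tg (log2 difference 1.31 ± 0.23, adjusted p = 0.0109). Gamt, the last enzyme of creatine synthesis, had 35.8, 23.6 and 29.8 FPKM in WT against 14.6, 17.4 and 10.8 FPKM in NFIA-Tg (log2 difference -1.01 ± 0.2, adjusted p = 0.0158), a call lost without WT replicate 3 (adjusted p = 0.0549). Atp2a2, the SERCA2 calcium pump, had 35.8, 40.5 and 41.3 FPKM in WT against 60.4, 60.4 and 56.7 FPKM in NFIA-Tg (log2 difference 0.58 ± 0.1, adjusted p = 0.00895). Ckb (-0.1), Gatm (0.16), Alpl (-0.35), Atp2a3 (0.01), Pm20d1 (0.3), Itpr1 (-0.03), Itpr2 (-0.06) and Itpr3 (0.01) were not called.

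Glycogen metabolism had 7 of 20 members higher and none lower (median 0.38). Glycogen is the cell's glucose store. Pygb, a phosphorylase that breaks it down, had 42.3, 54.3 and 43 FPKM in WT against 134, 117 and 149 FPKM in NFIA-Tg (log2 difference 1.5 ± 0.13, adjusted p = 0.000884). Gys1, the synthase that builds it up, had 34.2, 33.2 and 30.7 FPKM in WT against 54, 58.3 and 54.5 FPKM in NFIA-Tg (log2 difference 0.75 ± 0.09, adjusted p = 0.00296). Phka2, a regulatory subunit of phosphorylase kinase, had 15.7, 27.4 and 23.1 FPKM in WT against 45.9, 45.9 and 40.8 FPKM in NFIA-Tg (log2 difference 1 ± 0.18, adjusted p = 0.0129), so enzymes of both directions rose. All 3 were called in all 7 fits, and the branching enzyme Gbe1 (0.64, 2 of 6), Phkg1 (0.76, 5 of 6), Ppp1r3b (0.72, 1 of 6) and Ugp2 (0.6, 1 of 6), which supplies UDP-glucose, in fewer. In glucose transport and glycolysis, 5 of 26 genes were higher and 2 lower, and none was called in all 7 fits. The insulin-regulated transporter Slc2a4 had 56.6, 54.6 and 46.7 FPKM in WT against 62.6, 81.9 and 75.4 FPKM in NFIA-Tg, with all NFIA-Tg values above WT, and was not called (log2 difference 0.47 ± 0.13, adjusted p = 0.0534). Ldha, lactate dehydrogenase, rose with 395, 395 and 386 FPKM in WT against 557, 657 and 804 FPKM in NFIA-Tg (log2 difference 0.76 ± 0.15, adjusted p = 0.0157), a call lost without WT replicate 2 or 3 or without NFIA-Tg replicate 2 (adjusted p 0.0502 to 0.0621). The other increases were of Ldhb (0.73, 2 of 6), Gpi1 (0.53, 4 of 6), Pfkp (0.48, 1 of 6) and Pgam1 (0.54, 1 of 6). The decreases were of Pfkfb3 (-1.18, 3 of 6), which makes an activator of glycolysis, and Fbp2 (-0.54, 1 of 6), which runs against it. In insulin signalling, 3 of 29 genes were higher and 1 lower, 13.8% beside 11.4% of all tested genes. The docking protein Irs1 (0.78, 1 of 6) and Tbc1d4 (0.64, 1 of 6), a brake on glucose transporter traffic, were among the increases. Pik3cb (-0.81, 2 of 6) was the decrease. Akt2, the kinase of insulin's metabolic actions, had 97, 125 and 119 FPKM in WT against 225, 178 and 171 FPKM in NFIA-Tg (log2 difference 0.74 ± 0.14, adjusted p = 0.0167).

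Lipid synthesis did not move as a block. Among fatty acid desaturases and elongases, 4 of 10 tested members were lower and none higher, with a median of -0.5. Beside Scd1, its paralogue Scd2 had 36.9, 54.9 and 56.3 FPKM in WT against 11.4, 15.2 and 14.1 FPKM in NFIA-Tg (log2 difference -1.77 ± 0.18, adjusted p = 0.0013). Fads3 had 368, 322 and 338 FPKM in WT against 205, 188 and 179 FPKM in NFIA-Tg (log2 difference -0.84 ± 0.11, adjusted p = 0.00338). Reads of Scd1 and Scd2 can in part be shared between these similar genes. Elovl1 fell (log2 difference -0.43 ± 0.11, adjusted p = 0.0388) and lost the call without WT replicate 1 or 3 or without NFIA-Tg replicate 1, 2 or 3 (adjusted p 0.0741 to 0.13). Fads1 (-0.65), Fads2 (-0.58), Fads6 (-0.16), Degs1 (-0.21), Elovl5 (-0.3) and Elovl6 (0.31) were not called. Fatty acid synthesis itself had 3 of 21 members higher and 1 lower. Fasn, the synthase, had 110.5, 173 and 180.2 FPKM in WT against 89.2, 144 and 103 FPKM in NFIA-Tg and was not called (log2 difference -0.46 ± 0.23, adjusted p = 0.224). G6pdx, which makes NADPH for lipid synthesis, had 210, 173 and 199.8 FPKM in WT against 91.2, 108 and 105 FPKM in NFIA-Tg (log2 difference -0.93 ± 0.12, adjusted p = 0.00299). Acacb, whose product restrains fatty acid oxidation, rose from 22.5 ± 2.87 to 54.8 ± 20.9 FPKM (log2 difference 1.19 ± 0.23, adjusted p = 0.0169) and lost the call without WT replicate 2 (adjusted p = 0.0501). The other increases were of Tkt (0.55, 2 of 6) and Idh1 (0.65, 2 of 6), which serve the supply of NADPH.

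Of 33 genes of fatty acid uptake and triglyceride assembly, 5 were higher and 2 lower, 21.2% beside 11.4% of all tested genes. Mogat1, which adds a fatty acid to monoacylglycerol, had 7.4, 17.1 and 9.81 FPKM in WT against 31.6, 39.4 and 38.9 FPKM in NFIA-Tg (log2 difference 1.67 ± 0.25, adjusted p = 0.00601). The acyltransferases Agpat3 (0.49, 5 of 6) and Gpat4 (0.58, 2 of 6) and Gpd1 (0.84, 1 of 6), which makes glycerol phosphate, rose with Fabp3, while the carrier Fabp5 (-0.83, 2 of 6) and Gpihbp1 (-0.58, 4 of 6), the capillary anchor of lipoprotein lipase, fell. Fabp4, the fatty acid carrier, was not called (log2 difference 0.16 ± 0.27, adjusted p = 0.74). Among 23 genes of the lipid droplet and lipolysis, 3 were higher and 1 lower, a share of 17.4%. Hilpda, an inhibitor of lipolysis that hypoxia induces, had 58.7, 30.8 and 28.3 FPKM in WT against 11.3, 9.65 and 7.99 FPKM in NFIA-Tg (log2 difference -1.86 ± 0.26, adjusted p = 0.0044). The lipases Pnpla2 (log2 difference 0.34 ± 0.15, adjusted p = 0.191) and Lipe (log2 difference -0.4 ± 0.12, adjusted p = 0.0704) were not called, although their groups did not overlap, with Pnpla2 higher and Lipe lower in NFIA-Tg.

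General fat cell regulators and adipokines were read next. Of 25 adipogenic transcription factors, 3 were called, all higher, a share of 12% beside 11.4% of all tested genes. Ebf2 alone was called in all 7 fits, the others being Klf15 (1.25, 2 of 6) and Stat5a (0.41, 1 of 6). Pparg had 85.2, 129 and 127 FPKM in WT against 81, 163 and 123 FPKM in NFIA-Tg (log2 difference 0.08 ± 0.26, adjusted p = 0.874). Cebpa had 298, 295 and 287 FPKM in WT against 286, 264 and 191 FPKM in NFIA-Tg (log2 difference -0.27 ± 0.15, adjusted p = 0.289), neither called. Adipoq, which codes for adiponectin, had 2919, 2859.9 and 2929 FPKM in WT against 2048, 2022 and 2274 FPKM in NFIA-Tg (log2 difference -0.46 ± 0.14, adjusted p = 0.076), so the NFIA-Tg values were all lower without a call. Lep, which codes for leptin, had 934, 977 and 1045 FPKM in WT against 558, 673 and 975 FPKM in NFIA-Tg (log2 difference -0.46 ± 0.2, adjusted p = 0.174). Retn, which codes for resistin, had 1528, 1241 and 944 FPKM in WT against 927, 1023 and 1119.8 FPKM in NFIA-Tg (log2 difference -0.25 ± 0.19, adjusted p = 0.419), both with overlap. In the list of 29 tested adipokines, 5 were higher and 4 lower. Rbp4, the retinol carrier, had 265, 329 and 230.5 FPKM in WT against 664, 580 and 857 FPKM in NFIA-Tg (log2 difference 1.34 ± 0.18, adjusted p = 0.00419). Sfrp5, a secreted Wnt antagonist whose level tracks fat mass, had 596, 361 and 442 FPKM in WT against 154, 134 and 129.6 FPKM in NFIA-Tg (log2 difference -1.71 ± 0.18, adjusted p = 0.00166). C1qtnf7 rose from 5.31 ± 0.99 to 13.6 ± 1.31 FPKM (log2 difference 1.22 ± 0.14, adjusted p = 0.00246). C1qtnf12 rose from 34.7 ± 1.2 to 59.1 ± 8.55 FPKM (log2 difference 0.74 ± 0.12, adjusted p = 0.00713), and both are relatives of adiponectin. Angptl8 (1.6, 3 of 6), an insulin-induced regulator of lipoprotein lipase, and Nampt (0.99, 1 of 6), which makes NAD, rose. Apln (-1.35, 4 of 6), Serpina3c (-0.52, 3 of 6) and C1qtnf6 (-0.42, 1 of 6) fell.

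Several carriers of insulin-like growth factor (IGF) changed, and the factors themselves were not called. Of 11 tested genes of the system, 3 were lower and 1 higher, and all 4 were called in all 7 fits. Besides Igfbp3, Igfals, which holds IGF in its large serum complex, had 68.3, 54.2 and 58.8 FPKM in WT against 10.2, 16.1 and 10.6 FPKM in NFIA-Tg (log2 difference -2.23 ± 0.17, adjusted p = 0.000483). Htra1, a protease that cleaves IGF carriers and matrix, had 159, 159 and 171 FPKM in WT against 105, 102 and 94.1 FPKM in NFIA-Tg (log2 difference -0.69 ± 0.1, adjusted p = 0.00423). Igfbp5 moved the other way, with 71.6, 69 and 70.6 FPKM in WT against 163, 195 and 118 FPKM in NFIA-Tg (log2 difference 1.13 ± 0.17, adjusted p = 0.00583). The log2 differences of the uncalled members were -0.08 for Igf1, 0.1 for Igf2, -0.22 for Igf1r, -0.15 for Igf2r, 0.35 for Igfbp4, 0.4 for Igfbp6 and 0.01 for Igfbp7. Among paraoxonases, apolipoproteins and angiopoietin-like proteins, 4 of 22 were higher and 3 lower. Pon3, the neighbour of Pon1 in its gene cluster, had 23, 33.1 and 30.4 FPKM in WT against 51, 48.8 and 58.9 FPKM in NFIA-Tg (log2 difference 0.86 ± 0.15, adjusted p = 0.00974). Pltp, which transfers phospholipid between lipoproteins, had 479.6, 431 and 518 FPKM in WT against 253, 221 and 238 FPKM in NFIA-Tg (log2 difference -1 ± 0.12, adjusted p = 0.00237). Called in fewer fits were Apoc1 (0.74, 1 of 6), which rose, and Angptl2 (-1.02, 1 of 6), which fell. Angptl7 was near 0 in WT, at 0.248, 0 and 0.407 FPKM, and uneven in NFIA-Tg, at 24.6, 6.37 and 55.2 FPKM (log2 difference 4.19 ± 0.61, adjusted p = 0.00528).

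Several circadian clock genes rose. The clock is a loop in which CLOCK and BMAL1 (encoded by Arntl) switch on their own repressors over a day, so the level of its genes depends on the hour of sampling. Of 18 tested members, 8 were higher and none lower, with a median of 0.76, and the called members numbered 5, 6 and 5 without WT replicate 1, 2 or 3 and 10, 5 and 7 without NFIA-Tg replicate 1, 2 or 3. Nr1d1, the repressor REV-ERBα, had 74.2, 71.5 and 80.6 FPKM in WT against 106, 150.3 and 126 FPKM in NFIA-Tg (log2 difference 0.74 ± 0.14, adjusted p = 0.0129). Bhlhe41, the repressor DEC2, had 1.84, 2.01 and 1.43 FPKM in WT against 5.17, 7.92 and 6.34 FPKM in NFIA-Tg (log2 difference 1.43 ± 0.17, adjusted p = 0.00257). Tef, a clock output factor, had 31.1, 36.1 and 39.3 FPKM in WT against 53.9, 69.4 and 72 FPKM in NFIA-Tg (log2 difference 0.85 ± 0.14, adjusted p = 0.00831). The related factor Hlf rose from 2.2 ± 0.516 to 5.5 ± 0.803 FPKM (log2 difference 1.03 ± 0.16, adjusted p = 0.00721), and the repressor Per3 from 10.6 ± 2.03 to 20.1 ± 2.41 FPKM (log2 difference 0.87 ± 0.16, adjusted p = 0.012). These 5 were called in all 7 fits, with every NFIA-Tg value above every WT value, as in every called increase. Rora (log2 difference 0.56 ± 0.12, adjusted p = 0.0235) lost its call without WT replicate 1 or 3 or without NFIA-Tg replicate 2 or 3 (adjusted p 0.0548 to 0.0951). Ciart (log2 difference 1.14 ± 0.27, adjusted p = 0.0329) lost it without WT replicate 1, 2 or 3 or without NFIA-Tg replicate 2 (adjusted p 0.0724 to 0.0826). Nfil3 (log2 difference 1.33 ± 0.34, adjusted p = 0.0409) lost it without WT replicate 1, 2 or 3 or without NFIA-Tg replicate 2 (adjusted p 0.059 to 0.0957).

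The core activators were not called and overlapped between the genotypes. Clock had 4.18, 5.15 and 4.43 FPKM in WT against 5.09, 5 and 4.9 FPKM in NFIA-Tg (log2 difference 0.11 ± 0.12, adjusted p = 0.6). Arntl had 4.85, 4.53 and 3.31 FPKM in WT against 7.51, 1.83 and 3.11 FPKM in NFIA-Tg (log2 difference -0.16 ± 0.36, adjusted p = 0.797), highest in NFIA-Tg replicate 1 and lowest in NFIA-Tg replicate 2. Dbp, an output gene that usually runs opposite to Arntl, had 17.4, 17 and 26.7 FPKM in WT against 29.1, 73.5 and 39.9 FPKM in NFIA-Tg (log2 difference 1.1 ± 0.31, adjusted p = 0.0584), and within NFIA-Tg it was lowest in replicate 1 and highest in replicate 2. The NFIA-Tg libraries thus differed among themselves in a pair of genes that depend on time of day. The hour of sampling is not labelled, and its part in these differences was not tested.

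Most MHC class II genes fell in NFIA-Tg. MHC class II proteins show peptides to helper T cells, mainly on macrophages, dendritic cells and B cells, and also on fat cells, and the coactivator CIITA switches on their genes. Of 14 tested members of the list, 8 were lower and none higher (median -0.69), and the called members numbered 7, 8 and 6 without WT replicate 1, 2 or 3 and 8, 7 and 7 without NFIA-Tg replicate 1, 2 or 3. H2-Aa, the α chain of a peptide-presenting pair, had 500.2, 409 and 469.9 FPKM in WT against 285, 262 and 257 FPKM in NFIA-Tg (log2 difference -0.77 ± 0.12, adjusted p = 0.00599). H2-Eb1 had 278, 220.5 and 261 FPKM in WT against 156, 140 and 124 FPKM in NFIA-Tg (log2 difference -0.85 ± 0.13, adjusted p = 0.00627). H2-Ab1 had 366, 275 and 354 FPKM in WT against 206, 188 and 147 FPKM in NFIA-Tg (log2 difference -0.88 ± 0.16, adjusted p = 0.0136), a call lost without WT replicate 3 (adjusted p = 0.0557). H2-DMb1, part of the editor that loads peptide, had 48.1, 43 and 54.2 FPKM in WT against 20.2, 17.2 and 16.2 FPKM in NFIA-Tg (log2 difference -1.39 ± 0.12, adjusted p = 0.000884). Its paralogue H2-DMb2 fell from 4.03 ± 0.616 to 1.27 ± 0.267 FPKM (log2 difference -1.15 ± 0.16, adjusted p = 0.00423). The α chain of the editor, H2-DMa, fell from 14.9 ± 1.5 to 8.66 ± 0.708 FPKM (log2 difference -0.72 ± 0.12, adjusted p = 0.00804). Ciita had 3.56, 3.82 and 3.76 FPKM in WT against 1.98, 1.46 and 1.15 FPKM in NFIA-Tg (log2 difference -0.91 ± 0.16, adjusted p = 0.00999). The invariant chain Cd74 fell from 802 ± 117 to 509 ± 76.5 FPKM (log2 difference -0.65 ± 0.16, adjusted p = 0.0373) and lost the call without WT replicate 1 or 3 or without NFIA-Tg replicate 2 or 3 (adjusted p 0.0731 to 0.116). The class I genes H2-K1 (-0.2 on the log2 scale), H2-D1 (-0.28) and B2m (-0.04), which all cells use, were not called and overlapped between genotypes.

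The promoters of MHC class II genes share a module whose Y box, the letters GATTGG or CCAATC, is read by NF-Y within the complex that recruits CIITA. The 120 bases before the start are shown for 3 of the genes that fell together, 5′ to 3′ on the strand of the gene, from RefSeq on GRCm38.p6, with the Y box in capitals: H2-Aa (chr17:34287824-34287943, minus strand, Y box 49 bases before the start), H2-Eb1 (chr17:34305747-34305866, plus strand, at 60 and 35 bases) and H2-DMb1 (chr17:34153071-34153190, plus strand, at 62 bases).
H2-Aa: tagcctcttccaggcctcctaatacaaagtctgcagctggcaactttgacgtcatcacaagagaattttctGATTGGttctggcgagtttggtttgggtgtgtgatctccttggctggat
H2-Eb1: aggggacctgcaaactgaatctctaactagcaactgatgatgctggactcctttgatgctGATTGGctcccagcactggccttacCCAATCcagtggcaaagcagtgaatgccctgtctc
H2-DMb1: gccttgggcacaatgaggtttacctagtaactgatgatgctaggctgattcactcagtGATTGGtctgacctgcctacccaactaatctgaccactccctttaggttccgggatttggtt
A Y box followed by C holds TTGGC, as in H2-Eb1, so both motifs overlap there. H2-DMb2 and H2-DMa also had a window with a Y box, and H2-Ab1 and Ciita had no window in the table. The Y box stood in 19.8% of all windows of tested genes, in 17.9% of those of genes called higher and in 17.5% of those of genes called lower.

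**Figure D4:**
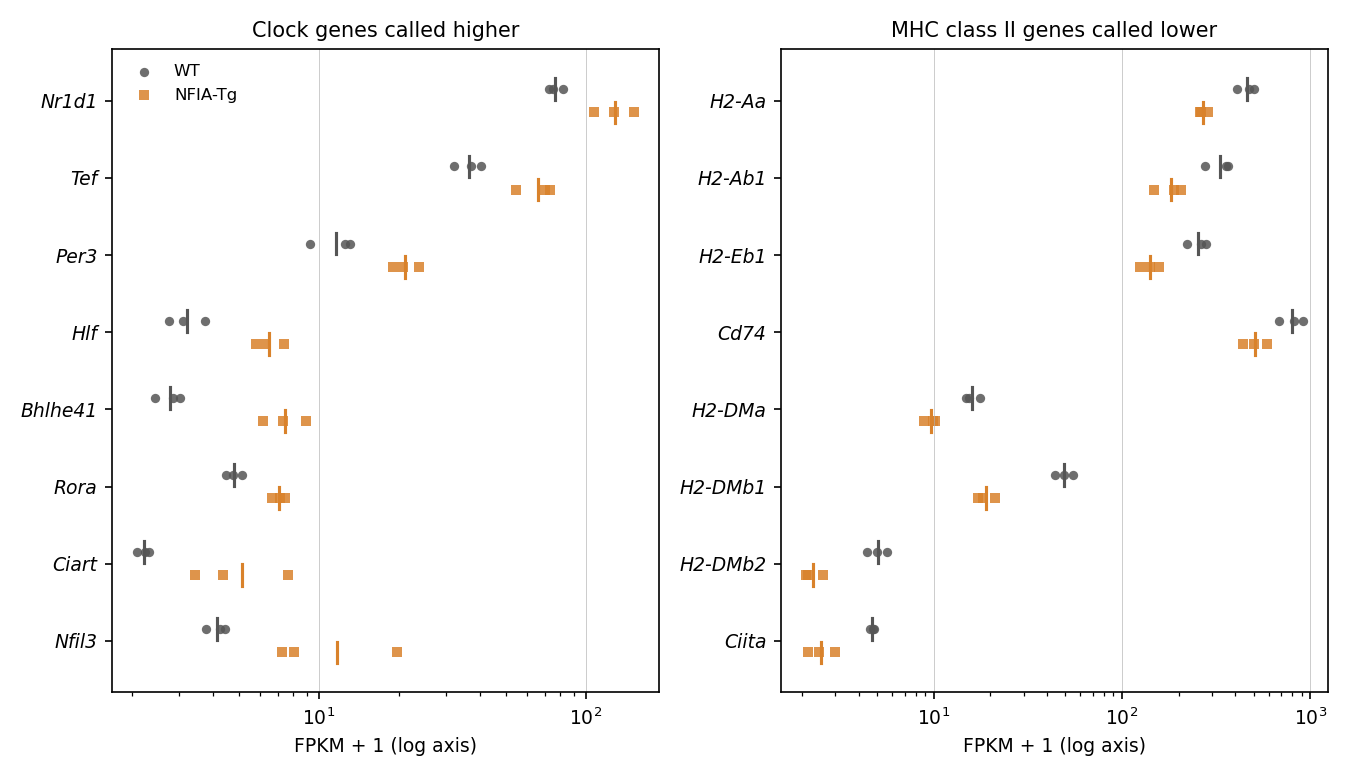
FPKM + 1 on a log axis in each library for the 8 clock genes called higher (left) and the 8 MHC class II genes called lower (right), with WT as grey circles, NFIA-Tg as orange squares and group means as bars. As in every called gene, the genotypes do not overlap in any of these genes, and Nfil3 and Ciart vary most within NFIA-Tg.

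Some macrophage genes rose and others fell. Of 27 macrophage and monocyte markers, 6 were lower and 2 higher, and their FPKM summed to 1085 to 1256 FPKM in WT and 934 to 1066 FPKM in NFIA-Tg. Itgad, the integrin CD11d, had 14, 13.2 and 24.6 FPKM in WT against 0.124, 0.32 and 0.203 FPKM in NFIA-Tg (log2 difference -3.86 ± 0.23, adjusted p = 0.000195). Itgax, the integrin CD11c of inflammatory macrophages and dendritic cells, had 5.46, 2.79 and 5.08 FPKM in WT against 1.2, 1.26 and 1.57 FPKM in NFIA-Tg (log2 difference -1.18 ± 0.21, adjusted p = 0.0126), a call lost without WT replicate 3 (adjusted p = 0.0505). Mpeg1, a pore-forming protein of macrophages, had 20.2, 21.7 and 27.4 FPKM in WT against 11.3, 12.7 and 10.7 FPKM in NFIA-Tg (log2 difference -0.93 ± 0.13, adjusted p = 0.00515). The lipid receptor Trem2 (-0.98, 2 of 6) and the scavenger receptor Marco (-1.67, 3 of 6) fell as well. Lyz1 fell from 15.1 ± 3.49 to 4.05 ± 0.923 FPKM (log2 difference -1.66 ± 0.19, adjusted p = 0.00237), with reads that it may share with its near copy Lyz2, which was not called (log2 difference -0.4 ± 0.14, adjusted p = 0.0936). Timd4, a marker of resident macrophages, rose from 1.13 ± 0.372 to 2.9 ± 0.0684 FPKM (log2 difference 0.88 ± 0.16, adjusted p = 0.0129). Lyve1, found on resident macrophages and lymph vessels, rose from 6.46 ± 1.33 to 14.1 ± 3.29 FPKM (log2 difference 1 ± 0.19, adjusted p = 0.0161), a call lost without NFIA-Tg replicate 2 or 3 (adjusted p 0.054 to 0.0573). The pan-macrophage markers Adgre1 (log2 difference -0.28 ± 0.21, adjusted p = 0.404) and Cd68 (log2 difference 0.01 ± 0.12, adjusted p = 0.972) and the receptor Csf1r (log2 difference -0.04 ± 0.13, adjusted p = 0.882) were not called and overlapped between the genotypes. 

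Markers of the other cells that carry MHC class II, or meet it, were read beside these genes. None of 4 tested dendritic cell markers was called, Zbtb46 (-0.4), Clec9a (-0.32), Cd209a (-0.79) and Batf3 (-0.61) all having changes below 0, and the 9 markers of that list summed to 23.6 to 28.8 FPKM in WT and 13.8 to 20.4 FPKM in NFIA-Tg, without overlap. The 9 B and plasma cell markers summed to 5.24 to 21.4 FPKM in WT and 2.09 to 7.88 FPKM in NFIA-Tg, with overlap, and neither of the 2 tested, Cd79a (-0.66) and Cd79b (-1.04), was called. Of 7 tested T and NK cell markers, 2 were lower. Cd52, a surface protein of lymphocytes and macrophages, fell from 29.9 ± 6.59 to 15.5 ± 2.45 FPKM (log2 difference -0.9 ± 0.17, adjusted p = 0.015), a call lost without NFIA-Tg replicate 2 (adjusted p = 0.0517). Cd2 of T cells fell from 2.67 ± 0.226 to 1.19 ± 0.408 FPKM (log2 difference -0.76 ± 0.17, adjusted p = 0.0271), lost without WT replicate 2 or 3 or without NFIA-Tg replicate 1 or 2 (adjusted p 0.0607 to 0.0908). The 17 T and NK cell markers in the table summed to 50.2 to 53.6 FPKM in WT and 24.4 to 35.9 FPKM in NFIA-Tg, also without overlap. The part of cell numbers in the decrease of MHC class II genes was not tested.

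Ccl2 and Ccl7, chemokines that draw monocytes, fell. Ccl2 had 11.1, 7.85 and 8.93 FPKM in WT against 1.36, 2.93 and 1.03 FPKM in NFIA-Tg (log2 difference -1.94 ± 0.25, adjusted p = 0.00341). Ccl7 had 12.1, 5.63 and 7.35 FPKM in WT against 1.94, 3.13 and 2.03 FPKM in NFIA-Tg (log2 difference -1.43 ± 0.25, adjusted p = 0.0115). In the list of 23 tested chemokines, 3 were lower and 3 higher. The neutrophil chemokine Cxcl1 (-0.82, 1 of 6) was the third that fell. Pf4 rose from 48.5 ± 6.02 to 87.7 ± 9.8 FPKM (log2 difference 0.84 ± 0.13, adjusted p = 0.00608). Ccl21a and Ccl21c, near-identical copies that lymph vessels and lymph nodes make, were called higher but low. Ccl21a had 0.689, 0 and 0 FPKM in WT against 2.7, 1.66 and 3.34 FPKM in NFIA-Tg, and Ccl21c 1.32, 1.58 and 2.29 FPKM in NFIA-Tg and was listed at 0 in all 3 WT libraries. Both passed the filter on low values only through NFIA-Tg, so the filter fixed their direction. As near copies they do not count as separate increases. The 7 markers of lymph vessels, Ccl21a and Lyve1 among them, summed to 14.8 to 17.4 FPKM in WT and 21.8 to 29.9 FPKM in NFIA-Tg. The gap between these sums rests largely on Lyve1, also found on resident macrophages, and on Ccl21a. It does not show that lymph vessel RNA as a whole was higher. Of 10 tested chemokine receptors, Ccr10 alone was called and rose from 0.865 ± 0.254 to 2.59 ± 0.294 FPKM (log2 difference 0.95 ± 0.16, adjusted p = 0.00913). Ccr2, the receptor of Ccl2, had 4.81, 5.7 and 5.21 FPKM in WT against 2.48, 4.43 and 2.58 FPKM in NFIA-Tg and was not called (log2 difference -0.61 ± 0.19, adjusted p = 0.0729). Ccr1 (0.36), Cxcr3 (-0.26), Cxcr4 (-0.55), Cxcr6 (0.42), Ackr1 (0.05), Ackr2 (0.18) and Ackr3 (0.01) were not called either.

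Among cytokines and NF-κB signalling genes, 3 of 40 were higher and 4 lower, a share of 17.5% beside 11.4% of all tested genes. Csf1, the growth factor of macrophages, had 18.4, 14 and 19.97 FPKM in WT against 34.5, 37.4 and 35.6 FPKM in NFIA-Tg (log2 difference 1.01 ± 0.13, adjusted p = 0.00395). The cytokines Il18 (0.66, 3 of 6) and Tnfsf13b (0.66, 1 of 6) rose with it. The decreases were of Tgfb1 (-0.7, 2 of 6), both TNF receptors, Tnfrsf1a (-0.46, 0 of 6) and Tnfrsf1b (-0.72, 2 of 6), and the TNF-induced Tnfaip2 (-0.84, 2 of 6). Tnf lay at 0.413 to 0.77 FPKM in WT and 0.383 to 0.629 in NFIA-Tg, and Il6 at no more than 0.273 FPKM in any library, both too low to test. Of 42 interferon-stimulated genes, 2 were higher and 2 lower, a share of 9.52% beside 11.4% of all tested genes. The increases were of the GTPases Igtp (0.63, 2 of 6) and Irgm2 (0.52, 1 of 6). Irf8, a factor of macrophages and dendritic cells, fell as Ubd did, with 11.3, 9.97 and 10.6 FPKM in WT against 5.05, 6.36 and 4.41 FPKM in NFIA-Tg (log2 difference -0.9 ± 0.14, adjusted p = 0.00654). Complement genes had 5 of 22 members higher and 1 lower. C3, the hub of the cascade, had 98.5, 104 and 140.4 FPKM in WT against 438, 424 and 631 FPKM in NFIA-Tg (log2 difference 2.1 ± 0.19, adjusted p = 0.000884). The proteases of the classical pathway C1ra (0.54, 4 of 6) and C1s1 (0.5, 4 of 6) and the near copies C4a (0.63, 2 of 6) and C4b (0.67, 3 of 6) rose too, and the shield protein Cd59a (-0.56, 4 of 6) fell. Cfd, the fat cell protease adipsin, had 4860.5, 1884 and 1425 FPKM in WT against 2352, 1729 and 1123 FPKM in NFIA-Tg, with WT replicate 1 above the rest, and was not called (log2 difference -0.5 ± 0.45, adjusted p = 0.496).

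Several acute-phase proteins, which are secreted in inflammation, fell. Of 16 tested acute-phase and iron-binding genes, 5 were lower and none higher (median -0.4), and the called members numbered 5, 6 and 6 without WT replicate 1, 2 or 3 and 4, 3 and 6 without NFIA-Tg replicate 1, 2 or 3. Hp, haptoglobin, had 3635, 2841 and 3738 FPKM in WT against 787, 1134 and 1129 FPKM in NFIA-Tg (log2 difference -1.75 ± 0.2, adjusted p = 0.00227). Orm1, an orosomucoid whose reads may be shared with its copies, had 248, 196 and 221 FPKM in WT against 36.7, 50.2 and 99 FPKM in NFIA-Tg (log2 difference -1.94 ± 0.31, adjusted p = 0.00713). Trf, transferrin, had 1467, 1324 and 1877 FPKM in WT against 763, 711 and 756 FPKM in NFIA-Tg (log2 difference -1.05 ± 0.16, adjusted p = 0.00577). Slc40a1, the iron exporter, fell from 7.8 ± 0.75 to 4.42 ± 0.443 FPKM (log2 difference -0.7 ± 0.13, adjusted p = 0.0125), a call lost without WT replicate 3 or without NFIA-Tg replicate 2 (adjusted p 0.0556 to 0.056). The haem carrier Hpx fell from 4.12 ± 2.35 to 0.874 ± 0.431 FPKM (log2 difference -1.38 ± 0.3, adjusted p = 0.0254), lost without NFIA-Tg replicate 1 or 2 (adjusted p 0.0627 to 0.0809).

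**Figure D5:**
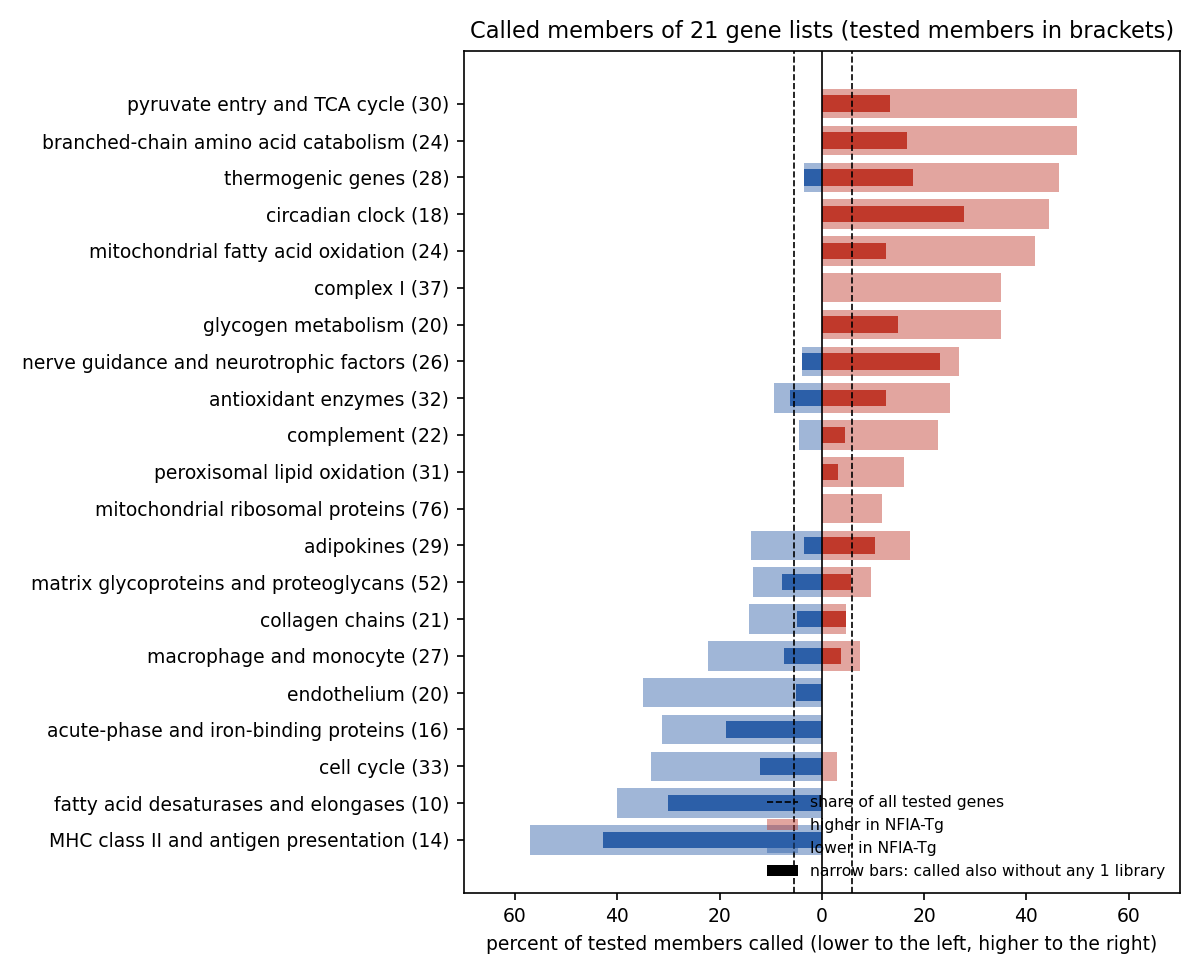
Percent of tested members called lower (left, blue) and higher (right, red) in NFIA-Tg for 21 gene lists, with narrow dark bars for members called in all 7 fits and dashed lines at the shares of all tested genes (5.96% higher, 5.44% lower). Pyruvate and citric acid cycle genes reach 15 of 30 higher, and MHC class II genes 8 of 14 lower.

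In the extracellular matrix, single genes changed in both directions. Of 21 collagen chains, 1 was higher and 3 lower, 19% beside 11.4% of all tested genes. Col16a1, a chain that lies along collagen fibrils, had 19.3, 13.9 and 20.3 FPKM in WT against 5.52, 4.23 and 3.89 FPKM in NFIA-Tg (log2 difference -1.76 ± 0.17, adjusted p = 0.00114). Col12a1, another such chain, rose with 2, 1.82 and 2.2 FPKM in WT against 5.26, 4.75 and 6.69 FPKM in NFIA-Tg (log2 difference 1.12 ± 0.15, adjusted p = 0.00397). The basement membrane chain Col4a2 (-0.51, 3 of 6) and Col5a3 (-0.52, 4 of 6) fell too. Col1a1, the main fibril chain, had 189, 126 and 144 FPKM in WT against 113, 110 and 97.6 FPKM in NFIA-Tg and was not called (log2 difference -0.49 ± 0.15, adjusted p = 0.0756). Among 52 matrix glycoproteins and proteoglycans, 5 were higher and 7 lower. Thbs1, thrombospondin 1, had 62, 49.1 and 50.4 FPKM in WT against 21.8, 9.33 and 8.61 FPKM in NFIA-Tg (log2 difference -2.05 ± 0.3, adjusted p = 0.00528). Postn, periostin, which is made in remodelled and fibrotic tissue, had 83.6, 109 and 83.4 FPKM in WT against 29.6, 29.4 and 25.4 FPKM in NFIA-Tg (log2 difference -1.67 ± 0.13, adjusted p = 0.000483). Podn, a small leucine-rich proteoglycan, had 43.5, 39.8 and 35.8 FPKM in WT against 148, 120.3 and 121 FPKM in NFIA-Tg (log2 difference 1.68 ± 0.12, adjusted p = 0.000356). Hspg2, perlecan of the basement membrane, fell from 176 ± 17.9 to 87.2 ± 15.8 FPKM (log2 difference -1.01 ± 0.15, adjusted p = 0.00557). Thbs2 fell from 33 ± 8.07 to 13.2 ± 2.57 FPKM (log2 difference -1.25 ± 0.19, adjusted p = 0.00579). The laminin chain Lamb1 rose from 45.9 ± 0.991 to 66.9 ± 2.85 FPKM (log2 difference 0.53 ± 0.09, adjusted p = 0.00881). Other decreases were of Tnc (-1.34, 1 of 6), Fbln2 (-0.6, 1 of 6) and Prelp (-0.69, 1 of 6), and other increases of the small proteoglycans Bgn (0.84, 5 of 6) and Ogn (0.65, 0 of 6). Of 38 crosslinking and remodelling enzymes, 2 were higher and 4 lower, a share of 15.8%. Mmp12, the macrophage elastase, had 4.02, 3.34 and 4.59 FPKM in WT against 0.201, 0.18 and 0.165 FPKM in NFIA-Tg (log2 difference -2.07 ± 0.15, adjusted p = 0.00042). Adamts2, which trims procollagen, fell from 29.98 ± 1.08 to 15.2 ± 2.71 FPKM (log2 difference -0.95 ± 0.14, adjusted p = 0.005). Mmp15 fell from 9.1 ± 0.554 to 4.81 ± 0.89 FPKM (log2 difference -0.81 ± 0.14, adjusted p = 0.0115), as did the collagen hydroxylase Plod3 (-0.46, 3 of 6). The protease Fap rose from 6.47 ± 0.162 to 10.3 ± 0.297 FPKM (log2 difference 0.59 ± 0.1, adjusted p = 0.0101), and so did Pcolce (0.76, 2 of 6), which speeds procollagen trimming.

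Several endothelial genes fell. Of 20 markers of the vessel wall, 7 were lower and none higher, all 20 had a log2 difference below 0, and their FPKM summed to 1729 to 1802 FPKM in WT and 1054 to 1267 FPKM in NFIA-Tg, without overlap. The called markers numbered 8, 3 and 2 without WT replicate 1, 2 or 3 and 7, 2 and 3 without NFIA-Tg replicate 1, 2 or 3. They numbered 11 with median-of-ratios scaling and 2 with no filter on low values. Robo4, an endothelial guidance receptor, had 64.1, 63.9 and 64.5 FPKM in WT against 39.5, 37.6 and 34.9 FPKM in NFIA-Tg (log2 difference -0.77 ± 0.09, adjusted p = 0.00257) and was the marker called in all 7 fits. Cldn5, of the tight junction, had 306, 243 and 209.7 FPKM in WT against 149.9, 86.5 and 70.5 FPKM in NFIA-Tg (log2 difference -1.35 ± 0.26, adjusted p = 0.0166), lost without NFIA-Tg replicate 2 (adjusted p = 0.0583). Pecam1 fell from 140 ± 18.2 to 95.2 ± 7.39 FPKM (log2 difference -0.55 ± 0.12, adjusted p = 0.0277), lost without WT replicate 2 or 3 or without NFIA-Tg replicate 2 or 3 (adjusted p 0.0817 to 0.0989). The other called markers were Cdh5 (-0.72, 2 of 6), Tie1 (-0.64, 2 of 6), Egfl7 (-0.56, 0 of 6) and Gpihbp1 (-0.58, 4 of 6). Of 33 angiogenic factors and receptors, 6 were lower and 3 higher. Vegfa, the main vessel growth factor, had 126, 88 and 65 FPKM in WT against 114, 119 and 67.6 FPKM in NFIA-Tg and was not called (log2 difference 0.11 ± 0.27, adjusted p = 0.824). Fgf1 fell from 21.5 ± 2.36 to 10.5 ± 2.57 FPKM (log2 difference -0.99 ± 0.17, adjusted p = 0.00991). Pdgfc rose from 3.58 ± 0.664 to 8.03 ± 1.54 FPKM (log2 difference 0.97 ± 0.17, adjusted p = 0.0109). The growth factors Pgf (-1.3, 2 of 6), Pdgfa (-0.65, 1 of 6), Pdgfb (-0.56, 2 of 6) and Apln (-1.35, 4 of 6) fell, and Angpt1 (0.74, 1 of 6), which steadies vessels, and the receptor Fgfr2 (0.86, 1 of 6) rose. Among 16 markers of pericytes and smooth muscle, Cspg4 was higher, with 6.92, 17.6 and 16.1 FPKM in WT against 41.3, 39 and 39.2 FPKM in NFIA-Tg (log2 difference 1.58 ± 0.29, adjusted p = 0.0125), and Synpo2 and Smtn (-0.56, 2 of 6) were lower, Synpo2 with 29.6, 23.5 and 34.5 FPKM in WT against 12.6, 10.1 and 10.2 FPKM in NFIA-Tg (log2 difference -1.33 ± 0.16, adjusted p = 0.00251).

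Several factors for nerves rose. Of 26 tested guidance and neurotrophic genes, 7 were higher and 1, Robo4, was lower, while the median over the list was -0.2, and 16 of the 26 had a change below 0. S100b, a calcium-binding protein of glia and of brown fat cells with a nerve growth effect, had 6.63, 10.3 and 8.03 FPKM in WT against 29.6, 24.9 and 48.6 FPKM in NFIA-Tg (log2 difference 1.88 ± 0.24, adjusted p = 0.00354). Sema3c, a guidance cue, had 9.97, 11.6 and 12.1 FPKM in WT against 21.2, 25.4 and 28.2 FPKM in NFIA-Tg (log2 difference 1.08 ± 0.13, adjusted p = 0.00283). Cntfr, the receptor of ciliary neurotrophic factor, rose from 6.29 ± 0.422 to 11.3 ± 1.49 FPKM (log2 difference 0.75 ± 0.13, adjusted p = 0.00934). Ntrk2, the receptor of BDNF, rose from 50.9 ± 2.24 to 75.8 ± 5.69 FPKM (log2 difference 0.56 ± 0.1, adjusted p = 0.0107). Gfra1 and Nrg4, described above, complete the 6 called in all 7 fits, and Clstn3 was the seventh increase. Of 9 tested markers of Schwann cells and nerves, 2 were higher, S100b and Scn7a, both called in all 7 fits, and none was lower, with a median of 0.26. In 4 of the 9, S100b among them, every NFIA-Tg value lay above every WT value, as in 20.5% of all tested genes. The 13 markers of the list summed to 142 to 333 FPKM in WT and 270.1 to 305 FPKM in NFIA-Tg, and the lowest sum was that of WT replicate 2. The sheath markers Mbp and Sox10 overlapped between the genotypes. Both were lowest in WT replicate 2, at 25.5 and 0.61 FPKM, and lay at 64.3 and 78.8 (Mbp) and 2.3 and 3.15 (Sox10) in the other WT libraries, beside 48.2 to 63 and 2.09 to 2.52 FPKM in NFIA-Tg. The sodium channel Scn7a, found in Schwann cells, rose from 9.88 ± 0.221 to 16.4 ± 2.04 FPKM (log2 difference 0.67 ± 0.12, adjusted p = 0.0108).

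Some antioxidant enzymes rose and others fell, with 8 of 32 higher, Prdx6 among them, and 3 lower. The glutathione transferase Gsta3 had 37.1, 38 and 23.4 FPKM in WT against 113, 106 and 206 FPKM in NFIA-Tg (log2 difference 2.04 ± 0.27, adjusted p = 0.00402). Gsta4 rose from 12.9 ± 4.55 to 35.6 ± 3.68 FPKM (log2 difference 1.44 ± 0.21, adjusted p = 0.00528). Gstt1 rose from 107 ± 11 to 205 ± 36.6 FPKM (log2 difference 0.92 ± 0.15, adjusted p = 0.0069). Reads of Gsta3 and its relatives may be shared. Sod3, the superoxide dismutase outside cells, had 701, 644 and 730 FPKM in WT against 366, 331 and 265 FPKM in NFIA-Tg (log2 difference -1.12 ± 0.14, adjusted p = 0.00344). Sod1, the cytosolic enzyme, rose from 565 ± 38.9 to 894 ± 16.5 FPKM (log2 difference 0.66 ± 0.11, adjusted p = 0.0102), a call lost without WT replicate 3 (adjusted p = 0.0582). The mitochondrial Prdx3 (0.56, 4 of 6) and Txn2 (0.42, 2 of 6) and the selenium carrier Selenop (0.52, 0 of 6) rose in fewer fits. Gpx7 (-0.66, 6 of 6) and Prdx4 (-0.54, 1 of 6), both enzymes of the secretory pathway, fell. In the unfolded protein and integrated stress response, 2 of 33 were higher and 2 lower, 12.1% beside 11.4% of all tested genes. Asns, which makes asparagine, rose from 27.7 ± 2.18 to 54.2 ± 4.29 FPKM (log2 difference 0.94 ± 0.1, adjusted p = 0.00212). Psat1, of serine synthesis, fell from 60.3 ± 2.31 to 35.6 ± 4.06 FPKM (log2 difference -0.75 ± 0.11, adjusted p = 0.00496). The stress factors Ddit3 (0.39, 0 of 6) and Atf3 (-1.05, 1 of 6) went up and down, respectively. Fgf21, a stress hormone of fat and liver, was not called (log2 difference -0.27 ± 0.23, adjusted p = 0.469). The metallothionein Mt2 had 29.4, 29.4 and 38.5 FPKM in WT against 85, 53 and 494 FPKM in NFIA-Tg (log2 difference 1.99 ± 0.69, adjusted p = 0.0992), all NFIA-Tg values above WT but spread too widely for a call.

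Hormone and developmental pathways had calls in both directions, at shares not far from the 11.4% of all tested genes. Called members made up 16.7% of adrenergic and cAMP genes and 18.2% of steroid and nuclear hormone genes. The shares were 15.4% in the Wnt pathway, 11.4% in the TGF-β and BMP family and 16% among Hox genes. Of 30 adrenergic and cAMP pathway genes, 2 were higher and 3 lower. Rgs2, a brake on G protein signals, had 2.78, 3.99 and 3.93 FPKM in WT against 11.7, 7.05 and 10.4 FPKM in NFIA-Tg (log2 difference 1.21 ± 0.2, adjusted p = 0.00765). Adcy5, an adenylate cyclase, fell from 60.7 ± 3.88 to 40.8 ± 3.55 FPKM (log2 difference -0.56 ± 0.1, adjusted p = 0.0131), a call lost without WT replicate 3 or without NFIA-Tg replicate 2 (adjusted p 0.0556 to 0.0582). Another cyclase, Adcy4 (-0.38, 0 of 6), and the phosphodiesterase Pde4a (-0.57, 1 of 6) fell, and the phosphodiesterase Pde7b (0.95, 4 of 6) rose. In steroid and nuclear hormone signalling, 2 of 22 were higher and 2 lower, and Ghr, the growth hormone receptor, fell from 272 ± 70.8 to 144 ± 18.5 FPKM (log2 difference -0.88 ± 0.18, adjusted p = 0.0209), lost without NFIA-Tg replicate 1 or 3 (adjusted p 0.0528 to 0.0596). The thyroid hormone receptor Thrb (0.55, 0 of 6) rose. In the Wnt pathway 1 of 26 was higher and 3 lower. Sfrp1 had 1.61, 1.09 and 2.21 FPKM in WT against 8.21, 7.23 and 11.1 FPKM in NFIA-Tg (log2 difference 1.9 ± 0.2, adjusted p = 0.00166), opposite to its relative Sfrp5, and Nkd1, a feedback inhibitor that Wnt signals induce, fell from 20.2 ± 3.39 to 4.83 ± 1.84 FPKM (log2 difference -1.9 ± 0.23, adjusted p = 0.00275), as did the receptor Fzd2 (-0.85, 0 of 6). Gdf5, of the BMP family, rose from 1.34 ± 0.39 to 5.56 ± 1.09 FPKM (log2 difference 1.49 ± 0.18, adjusted p = 0.00287), 1 of 2 increases among 35 genes of the TGF-β and BMP family. The other was Tgfb3 (0.75, 2 of 6), and the decreases were of Tgfb1 and Fstl3 (-1.07, 2 of 6), an activin antagonist. Hox genes, which keep the position of a tissue along the body, had 4 of 25 members higher and none lower, Hoxa4 (0.89, 2 of 6), Hoxa7 (0.73, 4 of 6), Hoxa10 (0.71, 2 of 6) and Hoxc8 (0.69, 1 of 6).

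Several genes of cell division fell. Of 33 cell cycle genes, 11 were lower and 1 higher (median -0.55), and the called members numbered 8, 6 and 6 without WT replicate 1, 2 or 3 and 9, 5 and 8 without NFIA-Tg replicate 1, 2 or 3. Cdk1, the kinase of mitosis, had 2.41, 3.81 and 3.29 FPKM in WT against 1.07, 1.24 and 0.958 FPKM in NFIA-Tg (log2 difference -0.99 ± 0.17, adjusted p = 0.00959). Ube2c had 6.6, 5.92 and 4.41 FPKM in WT against 2.25, 2.58 and 1.98 FPKM in NFIA-Tg (log2 difference -1.01 ± 0.16, adjusted p = 0.00751), and the thymidine kinase Tk1 3.83, 3.65 and 3.56 FPKM in WT against 1.82, 1.63 and 1.45 FPKM in NFIA-Tg (log2 difference -0.83 ± 0.13, adjusted p = 0.00688). Ccnd3, a cyclin of the first phase of the cycle, fell from 93.2 ± 9.92 to 55.9 ± 3.69 FPKM (log2 difference -0.72 ± 0.11, adjusted p = 0.00608). The other called decreases were of the cyclins Ccna2 (-0.55, 0 of 6), Ccnd2 (-0.57, 4 of 6) and Ccne1 (-1.11, 4 of 6) and the mitosis genes Cdc20 (-0.71, 0 of 6), Cdca8 (-0.83, 5 of 6), Cenpa (-0.55, 0 of 6) and Tpx2 (-0.7, 1 of 6). Cdkn2c, an inhibitor of the cycle, was the 1 increase (log2 difference 0.66 ± 0.16, adjusted p = 0.0372) and lost the call without WT replicate 1, 2 or 3 or without NFIA-Tg replicate 2 (adjusted p 0.0533 to 0.109). Which cells of the tissue they come from was not tested.

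Markers of further cell types follow. Of 15 mature fat cell markers, Plin1, the coat protein of the lipid droplet, was called. It rose from 921 ± 24 to 1297 ± 118 FPKM (log2 difference 0.49 ± 0.13, adjusted p = 0.0447), and the call was lost without WT replicate 1, 2 or 3 or without NFIA-Tg replicate 1, 2 or 3 (adjusted p 0.0572 to 0.136). Of 16 tested fibroblast and progenitor markers, Sema3c alone was called. Of 2 tested mesothelial markers, Cldn15 fell from 85.2 ± 4.86 to 42.6 ± 7.13 FPKM (log2 difference -0.99 ± 0.13, adjusted p = 0.00354), while 5 of the 7 in the table stayed under 1 FPKM in every library and 3 of them were at 0. Of 10 tested granulocyte and mast cell markers, S100a8, a calcium-binding protein of neutrophils, rose from 9.41 ± 4.41 to 31.6 ± 18.7 FPKM (log2 difference 1.58 ± 0.39, adjusted p = 0.0386), lost without WT replicate 2 or 3 or without NFIA-Tg replicate 2 or 3 (adjusted p 0.0673 to 0.118). Its partner S100a9 went the other way without a call (log2 difference -1.13 ± 0.55, adjusted p = 0.221). None of 7 tested red blood cell genes was called.

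The lists of this paragraph had between 1 and 4 calls each, 5.88% to 13.3% of their tested members beside 11.4% of all tested genes. Of 34 autophagy and lysosome genes, 1 was higher and 1 lower. The increase was of Atg3 (0.51, 4 of 6), which conjugates the marker of autophagosomes. Ctsl, cathepsin L, had 273, 236 and 265 FPKM in WT against 119.5, 115 and 146 FPKM in NFIA-Tg (log2 difference -1.02 ± 0.12, adjusted p = 0.00272). Of 30 immediate-early and stress genes, 1 was higher and 3 lower. Gadd45a, which slows division after DNA damage, fell from 7.94 ± 1.09 to 4 ± 0.444 FPKM (log2 difference -0.83 ± 0.14, adjusted p = 0.00887), while its relative Gadd45b rose from 18.6 ± 3.14 to 33.9 ± 7.02 FPKM (log2 difference 0.82 ± 0.17, adjusted p = 0.0215), a call lost without NFIA-Tg replicate 2 (adjusted p = 0.0562). Btg2 (-0.54, 2 of 6) was the third decrease beside Atf3. In retinoid metabolism, Rbp4 was the 1 increase among 17 tested genes, and Aldh1a2, which makes retinoic acid, was the 1 decrease, with 1.87, 2.1 and 1.4 FPKM in WT against 0, 0.226 and 0.152 FPKM in NFIA-Tg (log2 difference -1.31 ± 0.17, adjusted p = 0.00381). Of 12 tested genes of zinc handling, the importer Slc39a8 fell from 3.04 ± 0.299 to 1.57 ± 0.223 FPKM (log2 difference -0.65 ± 0.14, adjusted p = 0.0242), lost without WT replicate 2 or 3 or without NFIA-Tg replicate 2 or 3 (adjusted p 0.0619 to 0.0742).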

How the data were processed

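RNA-seq of polyadenylated RNA from 6 iWAT samples was used here, 3 per genotype, grouped by their labels. RNA was extracted with Trizol and column kits and libraries were made with a strand-specific kit, per the labels' protocols. The authors deposited 1 FPKM value per gene entry and library, FPKM (fragments scaled for length and library size) being the unit in the deposited file names. Tools named without roles in the submitters' processing notes are STAR (2.7.8a) and StringTie (2.1.1), and the build named there is mm9. Read counts are not used here, so the depth per library is unknown. The deposited length column matched the genomic span within 1% for 76.8% of entries, so FPKM levels of different genes are not compared. Values of the 410 entries that share 180 symbols were summed.

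Genes with at least 1 FPKM in at least 3 libraries were tested with limma 3.58.1 in R 4.3.3 on log2(FPKM + 1), with empirical Bayes moderation and a mean-variance trend, 4 residual degrees of freedom and Benjamini-Hochberg adjustment over all tested genes. Adding 1 shrinks the differences of genes near or below 1 FPKM. The members and gene lists were chosen with earlier results of these data known. Names were drawn from the NFI family, the 12 largest increases and 12 largest decreases among genes called in all 7 fits with separated groups and at least 5 FPKM in the higher group, up to 4 members per list and direction with the smallest adjusted p, each list's most abundant member, every member of lists with at most 12 tested genes, and a fixed set of fat and immune genes. Other names were chosen after their values were seen. Some genes that these rules would name are not reported here. The code was tested on simulated data with 200 changed genes. It recovered 0 of them at a log2 difference of 0.5, 165 at 1 and 195 at 2. With so few changed genes these rates do not carry over to the libraries. A missing call is no evidence that a gene did not differ. Alternatives were the pseudocount, the filter, the scaling, the moderation, sample weights, the handling of shared symbols, the replicate number as a block, and the omission of each library.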

Additional observations from a re-analysis of the deposited data

How the results depend on the processing

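The number of called genes, 1413 with all 6 libraries (739 higher, 674 lower), was 934 with no filter on low values (469 higher, 465 lower) and 2524 with sample weights (1412 higher, 1112 lower), and between 1164 and 1484 under the other settings of pseudocount, filter, scaling and moderation. Leaving out 1 library gave 617 to 1262 calls, 285 to 624 higher and 300 to 638 lower, lowest without WT replicate 3 and without NFIA-Tg replicate 2. In every called gene the values of the genotypes did not overlap, so most alternatives could not have turned a direction. Of 337 called genes named in the text, 144 were also called in each fit without 1 library, and 0 changed direction under any alternative run. No filter on low values ended the call of 112 of them, among them Aacs, Acacb, Cd2, Cd74, Cdkn2c, Ciart, Cidea, Cldn5, Elovl1, Gadd45b, Ghr, Hpx, Mdh2, Myl1, Nfil3, Pecam1, Plin1, Ppara, Ppargc1a, S100a8 and Zim1. TPM scaling ended the call of 31 of them, among them Cdkn2c, Pecam1 and Ppara. No trend ended the call of 32 of them, among them Cdkn2c and Elovl1. Sample weights ended the call of 1 of them. Median-of-ratios scaling ended the call of 30 of them, among them Mdh2, Nfil3 and Plin1. Quantile normalization ended the call of 22 of them, among them Nfil3 and Plin1. Robust eBayes ended the call of 4 of them, among them Cidea, Nfil3 and S100a8. Pseudocount of 0.1 ended the call of 7 of them, among them Ppara and Zim1. Pseudocount of 0.5 ended the call of 2 of them. With no filter on low values, members called higher numbered 3 adipokines, 2 genes of triglyceride assembly, 2 of glycolysis, 4 of glycogen metabolism, 3 of complement and 3 of mitochondrial import, and members called lower 4 matrix glycoproteins and 2 angiogenic factors. Median-of-ratios scaling left 2 called higher in glycolysis and 2 in mitochondrial import. Low genes such as Itgad, Marco, Mpzl2, Mmp12, Angptl7, Ccl21a, Ccl21c, Aldh1a2 and Ppargc1a fell below the filter, and were not tested, when a library of their higher group was left out. Among them Itgad, Mmp12, Angptl7, Ccl21a, Ccl21c, Aldh1a2 and Ppargc1a lay under 1 FPKM in every library of their lower group. They were tested only through their higher group, so the filter fixed their direction. The labels do not say whether equal replicate numbers pair the samples, and the values do not settle it. Deviations of same-numbered libraries from their group means correlated by 0.11, 0.11 and 0.0072. Those of unlike numbers correlated by -0.159 to 0.0847, so replicates 1 and 2 correlated best with their own number. WT replicate 3 correlated better with NFIA-Tg replicate 2 (0.0847) than with its own number. With the replicate block, 1282 genes were called, 644 higher and 638 lower, 1126 of them among the 1413, and 48 of the 337 named genes were not called. Some genes that were not called changed sign. With median-of-ratios scaling Ackr3 had -0.0334, Atp2a3 -0.0393, Cd68 -0.0363, Igfbp7 -0.0371 and Itpr3 -0.0209. With quantile normalization Ackr3 had -0.0324, Atp2a3 -0.0249, B2m 0.312, Cd68 -0.0288 and Igfbp7 -0.0178. With sample weights Adrb3 had 0.052, Ckb 0.0355, Igf1 0.136, Il17ra -0.0123, Itpr3 -0.0851 and Slc16a7 0.129. Over the fits that leave out 1 library each, the log2 difference ran from -0.0814 to 0.157 for Ackr1, -0.141 to 0.211 for Ackr3, -0.604 to 0.19 for Arntl, -0.142 to 0.132 for Atp2a3, -0.184 to 0.0615 for B2m, -0.0653 to 0.0975 for Cd68, -0.867 to 0.0181 for Cfd, -0.241 to 0.0418 for Ckb, -0.114 to 0.068 for Csf1r, -0.00825 to 0.304 for Fabp4, -0.305 to 0.00155 for Fads6, -0.089 to 0.367 for Gatm, -0.294 to 0.0991 for Igf1, -0.132 to 0.31 for Igf2, -0.0932 to 0.128 for Igfbp7, -0.151 to 0.0673 for Itpr1, -0.182 to 0.023 for Itpr2, -0.115 to 0.126 for Itpr3, -0.398 to 0.397 for Mbp, -0.0352 to 0.45 for Nfix, -0.158 to 0.342 for Pparg, -0.211 to 0.0659 for Slc16a7, -0.137 to 0.545 for Sox10, -0.0178 to 0.181 for Uqcr10 and -0.118 to 0.368 for Vegfa. FPKM without read counts gives no counting error, so low genes are limited by an unknown depth.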

Other observations

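The gene groups in this section were chosen after their values had been seen, so their counts describe these libraries and support nothing by themselves. Mest, an imprinted gene whose level in fat follows the expansion of the depot, had 646, 508 and 524 FPKM in WT against 160, 117 and 60.2 FPKM in NFIA-Tg (log2 difference -2.4 ± 0.31, adjusted p = 0.00354). Its neighbour Copg2 had 75.2, 83 and 76.9 FPKM in WT against 33.8, 36.4 and 29.8 FPKM in NFIA-Tg (log2 difference -1.21 ± 0.11, adjusted p = 0.000866). Mest and Copg2 may overlap, and no source used here says whether reads were counted by strand. Klf14, a regulator in the same imprinted domain, fell from 8.41 ± 2.27 to 0.949 ± 0.402 FPKM (log2 difference -2.27 ± 0.21, adjusted p = 0.00104), and Peg10 of another imprinted cluster fell from 6.68 ± 0.242 to 0.806 ± 0.37 FPKM (log2 difference -2.11 ± 0.17, adjusted p = 0.000554). These 4 were called in all 7 fits. Zim1 fell as well (log2 difference -1.01 ± 0.23, adjusted p = 0.0277), a call lost without NFIA-Tg replicate 2 or 3 (adjusted p 0.06 to 0.0683). The other 16 tested members of a list of 30 imprinted genes were not called, Igf2 (0.1) and Peg3 (-1.16) among them.

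Several mitochondrial genes outside the lists of the report rose too. Ucp3, the muscle relative of Ucp1, had 30.04, 35 and 29.6 FPKM in WT against 107, 81.3 and 81.4 FPKM in NFIA-Tg (log2 difference 1.47 ± 0.13, adjusted p = 0.000884), whereas Ucp2 was not called (log2 difference -0.2 ± 0.11, adjusted p = 0.278) and neither was Ucp1. Sqor, which starts the oxidation of sulfide, had 70.7, 61 and 50.5 FPKM in WT against 105, 91 and 112 FPKM in NFIA-Tg (log2 difference 0.76 ± 0.14, adjusted p = 0.014) and rose with Tst, while Ethe1 (-0.17) and Suox (0.22), which act later, were not called. In the breakdown of choline and glycine, 6 of 11 tested genes were higher and none lower. Chdh, choline dehydrogenase, had 9.7, 21.3 and 17.9 FPKM in WT against 67.5, 73.3 and 79.9 FPKM in NFIA-Tg (log2 difference 2.17 ± 0.24, adjusted p = 0.0022). Sfxn1, the mitochondrial serine carrier, had 24.6, 27.6 and 22.2 FPKM in WT against 80.1, 82.6 and 94.9 FPKM in NFIA-Tg (log2 difference 1.75 ± 0.12, adjusted p = 0.000286), and Gldc, of the glycine cleavage system, rose from 4.58 ± 1.32 to 13 ± 2.15 FPKM (log2 difference 1.34 ± 0.19, adjusted p = 0.00444). In haem synthesis, 3 of 8 genes were higher. Alas1, the first and limiting enzyme, had 96.6, 121 and 127 FPKM in WT against 187, 208 and 289.7 FPKM in NFIA-Tg (log2 difference 0.97 ± 0.18, adjusted p = 0.0133), and Alad, the next, rose from 8.88 ± 1.32 to 19.7 ± 1.04 FPKM (log2 difference 1.07 ± 0.13, adjusted p = 0.00252).

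A few single genes called in all 7 fits fit none of these groups. Chchd10, a protein of the mitochondrial membrane space, rose from 53.6 ± 22.3 to 233 ± 45 FPKM (log2 difference 2.17 ± 0.31, adjusted p = 0.00456), and Trpv1, the capsaicin receptor, rose from 1.18 ± 0.341 to 5.78 ± 1.03 FPKM (log2 difference 1.64 ± 0.17, adjusted p = 0.00166). Il17re, a receptor chain for interleukin-17C, rose from 3.53 ± 1.24 to 11.8 ± 3.09 FPKM (log2 difference 1.52 ± 0.24, adjusted p = 0.0069) as Il17rb did, while Il17ra (0.09), Il17rc (0.22) and Il17rd (-0.24) were not called. In the other direction, Mfge8, which bridges dying cells and phagocytes, fell from 698 ± 208 to 247 ± 27.9 FPKM (log2 difference -1.46 ± 0.21, adjusted p = 0.00515). The receptors Gipr, of the gut hormone GIP, and Ffar2, of short-chain fatty acids, fell from 9.92 ± 2.79 to 3.4 ± 0.84 FPKM (log2 difference -1.3 ± 0.22, adjusted p = 0.00903) and from 55.3 ± 5.99 to 21.2 ± 7.48 FPKM (log2 difference -1.39 ± 0.22, adjusted p = 0.0069). Slc7a10, an amino acid carrier of white fat cells, fell from 238 ± 21.4 to 94.4 ± 5.73 FPKM (log2 difference -1.32 ± 0.11, adjusted p = 0.000592).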
